A study of Rattus norvegicus with 15 samples.

Results

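Ovariectomised rats that received a combined extract of Juglans regia (walnut) and Psoralea corylifolia were compared with ovariectomised rats that received saline, by RNA sequencing of the femur. The comparison used 6 of the study's 15 libraries: PJ 1 to 3 from rats given the combined extract by gavage at 4.0 g per kg per day, and OVX 1 to 3 from rats given an equal volume of saline. How much of each extract the 4.0 g held does not stand in the labels. Rats of both groups were female SD (Sprague-Dawley) rats, 8 weeks old at the start, that lost both ovaries, recovered for 6 weeks and were then dosed daily for 8 weeks. The other 9 libraries came from ovariectomised rats given the Psoralea extract alone at 2.4 g per kg per day (P) or the Juglans extract alone at 1.6 g per kg per day (J), and from rats that lost only fat near the ovaries (Sham), 3 libraries each. The libraries were chosen by their treatment labels alone. Nothing in the labels ties a library to 1 animal, so p-values below speak only of the spread among the libraries sequenced, which may be technical.

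Bone is remodelled by osteoclasts, cells of the monocyte lineage that dissolve mineral and digest collagen, and by osteoblasts, mesenchymal cells that deposit new matrix and can become the osteocytes buried in it. Osteoclasts form when the cytokine RANKL binds its receptor RANK, and the decoy receptor osteoprotegerin blocks this. The loss of estrogen at ovariectomy is known to raise resorption above formation. The femur also holds the marrow, where red cells, platelets, granulocytes and lymphocytes are made among fat cells, vessels and stromal cells, so the RNA of a whole femur mixes all of these. In such bulk samples fewer cells of a type and less RNA per cell cannot be told apart. The labels do not say how the femurs were trimmed, and the part of differing marrow and bone content in the results was not tested.

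Expression was deposited as FPKM (fragments scaled to gene length and library size), and levels below are FPKM unless a log2 scale is named. Sets of 3 values are in the order of the library numbers. Depth, inferred from the steps between values, was 50535100 to 61025200 reads in PJ libraries and 40667600 to 42808600 reads in OVX libraries, and 20158 to 20845 genes were above 0 in PJ libraries and 19435 to 19817 in OVX libraries. The PJ libraries were thus all deeper than the OVX libraries, and the part of this in the results was not tested. Globin genes held 0.304% to 1.28% of the FPKM of PJ libraries and 6.22% to 8.25% of that of OVX libraries, and mitochondrial genes held 11.4% to 16.9% in PJ and 12.0% to 14.1% in OVX.

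The defining genes of bone, osteoclasts and marrow were present in all 6 libraries, which are labelled as femur. The bone collagen gene Col1a1 had 808, 481 and 126 FPKM in PJ femurs and 164, 45.6 and 35.3 FPKM in OVX femurs, and the granulocyte enzyme gene Mpo had 79.2, 74.9 and 97.5 FPKM in PJ femurs and 435, 417 and 371 FPKM in OVX femurs. Cartilage and muscle were uneven between libraries of a group. Acan, the core protein of cartilage proteoglycan, had 41.7, 51.6 and 0.0114 FPKM in PJ femurs and 0.0354, 0.0269 and 0 FPKM in OVX femurs (chosen after its values were seen), so it was near 0 in PJ 3 and in all OVX libraries. For Acan the log2 fold change was 2.84 without PJ 1, 2.69 without PJ 2 and 5.54 without PJ 3 (adjusted p 0.000254 to 0.209), against 3.69 with all 6 libraries. Ckm, the muscle creatine kinase, had 0.0264, 0.136 and 0.110 FPKM in PJ femurs and 0.119, 0.275 and 9.38 FPKM in OVX femurs, with OVX 3 alone above 1 FPKM. For Ckm the log2 fold change was -0.13 without OVX 3 (adjusted p = 0.695), against -1.17 with all 6 libraries. One PJ library, PJ 3, stood apart from the other PJ libraries. Across 14416 genes, which are not independent of each other, its log2 values correlated with PJ 1 at 0.8994 and PJ 2 at 0.8938. This was less than with J 1 (0.9363), J 2 (0.9252), J 3 (0.9336), P 1 (0.9444) and P 3 (0.9325). It was about as with OVX 3 (0.895) and more than with P 2 (0.8208). PJ 1 and PJ 2 correlated at 0.9694 and the OVX libraries among themselves at 0.9619 to 0.9744. Values without PJ 3 or another library are given for the named genes whose call changed or whose fold moved by over 1.5 times.

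A linear model of log2(FPKM + 1) was fitted with limma over the 14221 genes with a mean of at least 1 FPKM in the 6 libraries. A gene was said to rise or fall in PJ when its p-value, adjusted by Benjamini-Hochberg over these genes, was below 0.05. In all, 6257 genes (44.0%) passed: 4207 (29.6%) were higher and 2050 (14.4%) were lower in PJ femurs than in OVX femurs. Counts of list members below are to be read against these shares. Changes were often large, since 2409 genes rose and 1057 fell by more than 2-fold, and 606 rose and 293 fell by more than 4-fold. The 3 PJ values lay entirely above or below the 3 OVX values in 6233 of the 6257. Over all genes tested this held for 5497 (38.7%) with PJ higher and 2813 (19.8%) with PJ lower, 8310 (58.4%) in all. Lack of overlap is thus nearly given for genes that passed. Where it is stated for them below, it describes the values and adds no separate support. The excess of higher genes depended on the scaling. The median gene was higher by 0.20 on the log2 scale in PJ, median-ratio scaling moved that median by -0.20, and it then called 3084 higher (21.7%) and 3042 lower genes (21.4%). Rescaling to TPM moved the median by 0.14 and leaving out mitochondrial and globin genes by -0.12. Leaving out OVX 1 left 2594 higher and 1346 lower calls and leaving out OVX 2 left 2604 higher calls. PJ 3 was the lowest PJ library in 2399 (57.02%) of the higher genes and the highest in 1323 (64.54%) of the lower genes, so it lay nearest to OVX most often. Without it 4979 genes were higher (35.0%) and 2709 lower (19.0%), and 95.75% of the higher and 98.24% of the lower calls were among them.

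**Figure D1:**
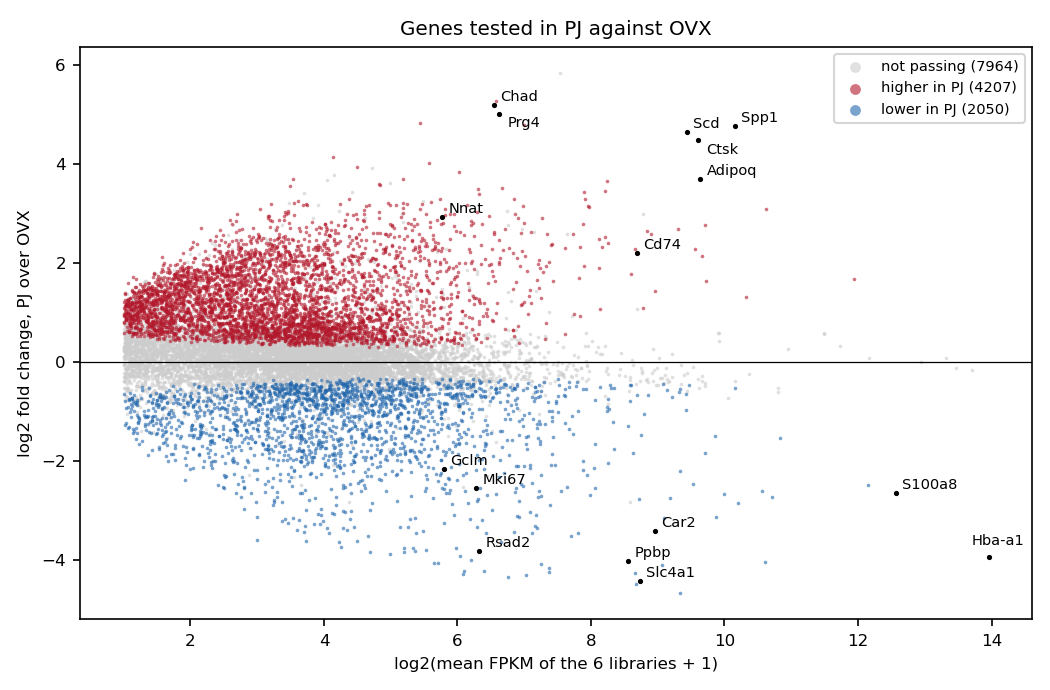
Difference between PJ and OVX (log2 fold change of FPKM + 1, vertical) against mean level (log2 scale, horizontal) for the 14221 genes tested, with genes that passed coloured by direction. The red cell gene Slc4a1 lies at -4.42, while Spp1 and Ctsk lie at 4.78 and 4.50.

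The strongest falls were of red cell genes and the strongest rises were of osteoclast, bone matrix, joint and fat genes. The 10 genes that fell most, among those with a symbol and no overlap between groups, included Ahsp, Slc4a1, Kel, Rhd, Car1, Hemgn, Rhag and Ermap, known from red cells or their precursors, and the 10 had log2 fold changes of -4.66 to -4.21. The 10 that rose most were Ecrg4, Chad, Prg4, Cilp, Cytl1, Spp1, Scd, Ctsk, Atp6v0d2 and Prelp, with log2 fold changes of 3.85 to 5.28. Ctsk and Atp6v0d2 are osteoclast genes, Spp1 encodes osteopontin, and Chad, Prg4, Cilp, Cytl1 and Prelp encode proteins of cartilage or joint tissue. Scd makes monounsaturated fatty acids. For Prelp the log2 fold change was 3.15 without OVX 1 and 4.54 without OVX 3 (adjusted p 0.00569 to 0.0183). Without PJ 3 the log2 fold changes of Kel, Rhd, Hemgn, Rhag and Ermap were -5.16 to -4.82, and without PJ 2 those of Kel, Car1, Hemgn and Rhag were -3.67 to -3.61. The 10 falls passed in each of the 15 alternatives to this fit. Of the 10 rises, Ecrg4, Chad, Cytl1 and Scd did not, as described below with cartilage and fat. Ecrg4 and Chad averaged under 1 FPKM in OVX femurs and so met the filter only through PJ.

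**Figure D2:**
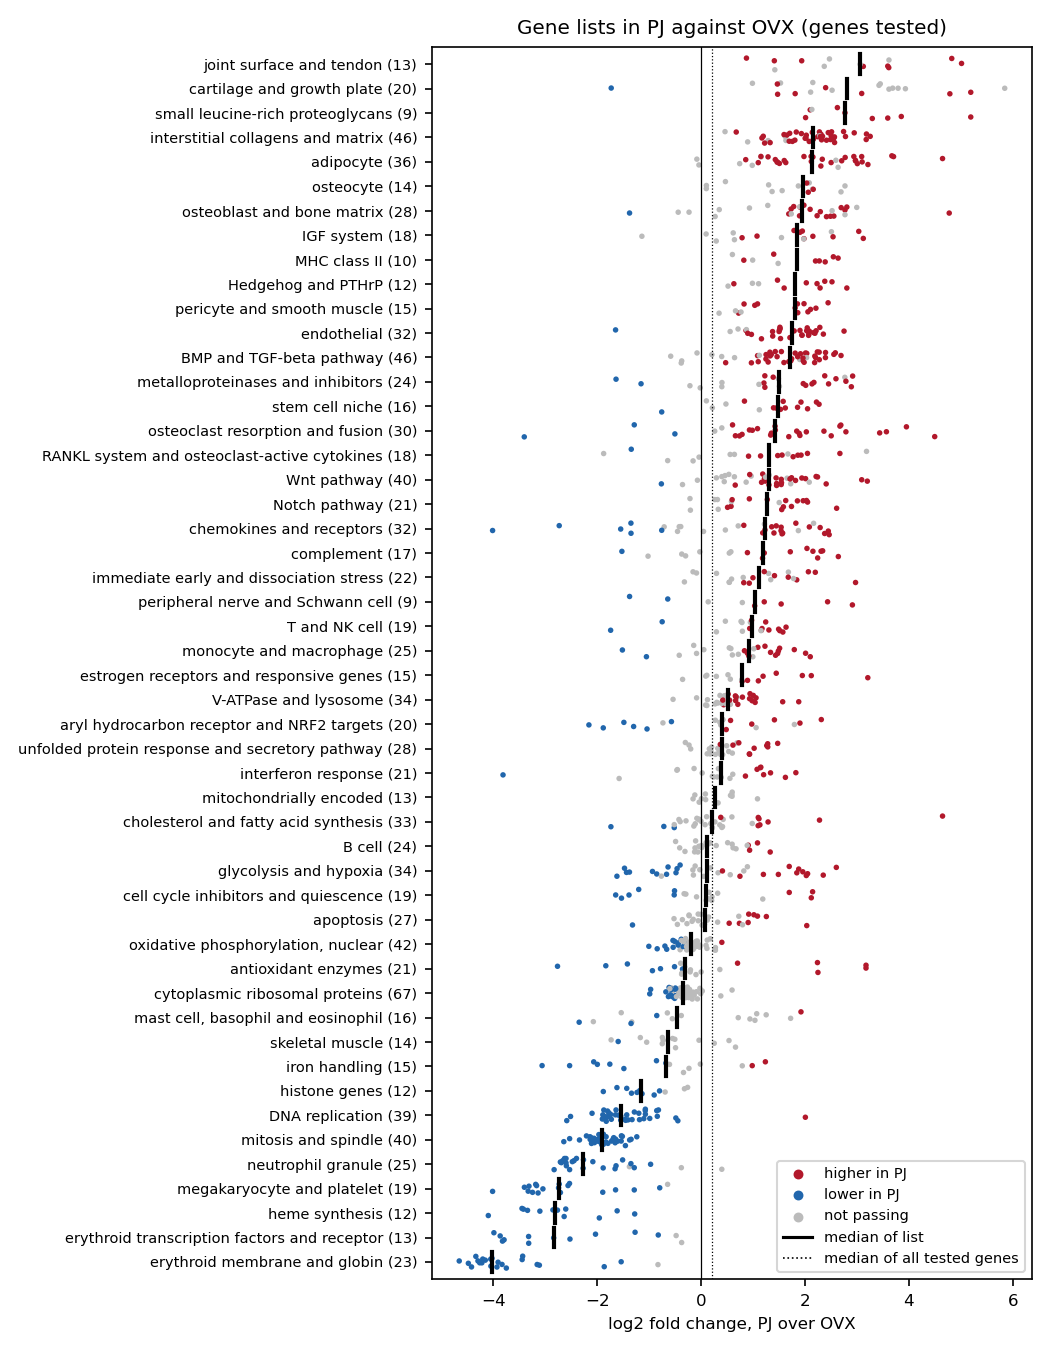
Log2 fold changes (PJ over OVX, horizontal) of the tested members of 50 gene lists, 1 list a row, with the members that passed coloured by direction and the median of each list marked. Red cell, heme, platelet, neutrophil and cell division lists lie to the left of 0, and matrix, fat, vessel and signalling lists to the right.

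Genes of red cells fell together. Of 23 tested genes of the red cell membrane and globins, 22 fell and 0 rose. Their median was -4.03 on the log2 scale, against 0.20 over all genes. Slc4a1, the band 3 anion exchanger of the red cell membrane, had 30.9, 14.6 and 102 FPKM in PJ femurs and 822, 892 and 686 FPKM in OVX femurs. Each PJ value was below each OVX value, and PJ 2 was the lowest and PJ 3 the highest of the PJ libraries (log2 fold change -4.42 ± 0.63, adjusted p = 0.00315). Ahsp, the chaperone that stabilises free alpha globin, had 40.3, 16.6 and 151 FPKM in PJ femurs and 1396, 1296 and 980.1 FPKM in OVX femurs (log2 fold change -4.66 ± 0.72, adjusted p = 0.00396). All PJ values lay below all OVX values in Slc4a1 and Ahsp. Hba-a1, an alpha globin gene, had 1336, 1081 and 4836 FPKM in PJ femurs and 33262, 30118 and 24889.5 FPKM in OVX femurs, the highest level of the list (log2 fold change -3.93 ± 0.58, adjusted p = 0.00338). Globin genes have near-identical copies, so the split of reads between them is uncertain, and Hba-a1 lost its call with no filter on low values (adjusted p = 0.078). For Slc4a1 the log2 fold change was -3.80 without PJ 2 and -5.16 without PJ 3 (adjusted p 0.000315 to 0.00766). For Ahsp the log2 fold change was -3.94 without PJ 2 and -5.49 without PJ 3 (adjusted p 0.000365 to 0.00849). For Hba-a1 the log2 fold change was -4.60 without PJ 3 (adjusted p = 0.00033). Epb41, the membrane skeleton protein 4.1, fell less and with little spread, with 21.3, 17.1 and 20.3 FPKM in PJ femurs and 72.3, 82.7 and 67.1 FPKM in OVX femurs (log2 fold change -1.87 ± 0.14, adjusted p = 0.00159).

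All 12 tested genes of heme synthesis and its transport fell, with a median of -2.81. Alas2, the erythroid form of the first and rate-limiting enzyme of the pathway, had 38.1, 31.6 and 147 FPKM in PJ femurs and 1072, 1132 and 781 FPKM in OVX femurs (log2 fold change -4.10 ± 0.56, adjusted p = 0.00283). For Alas2 the log2 fold change was -4.78 without PJ 3 (adjusted p = 0.000254). Fech, which inserts iron into the ring in the last step, averaged 20.5 ± 12.7 FPKM in PJ femurs and 208 ± 32.4 FPKM in OVX femurs (SD, n = 3 each) and fell (-3.42, adjusted p = 0.00198). The middle enzymes Cpox and Urod fell too, by log2 fold changes of -3.11 and -2.61, as did Abcb10 (-2.86), a mitochondrial transporter that red cells need for heme synthesis. Of 13 erythroid transcription regulators, 11 fell and 2 did not pass, with a median of -2.84. Gata1, the master factor of red cell and platelet development, had 4.43, 1.93 and 13.3 FPKM in PJ femurs and 96.0, 80.0 and 76.6 FPKM in OVX femurs (log2 fold change -3.80 ± 0.53, adjusted p = 0.00299). Its partner Zfpm1 had 14.2, 11.5 and 23.1 FPKM in PJ femurs and 70.4, 72.9 and 58.8 FPKM in OVX femurs (log2 fold change -2.04 ± 0.25, adjusted p = 0.00228). For Gata1 the log2 fold change was -4.41 without PJ 3 (adjusted p = 0.000318). Ldb1, a widely expressed adaptor of the same complex, had 65.4, 58.7 and 131 FPKM in PJ femurs and 116, 103 and 116 FPKM in OVX femurs, where PJ 3 lay above the OVX values and the other PJ libraries below them (adjusted p = 0.234). Without PJ 3 its log2 fold change was -0.84 (adjusted p = 0.00198), and it also passed as lower with array weights.

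Iron genes split. Of 15 tested, 8 fell and 2 rose (13.3% higher and 53.3% lower, against 29.6% and 14.4% of all genes tested). Tfrc, the transferrin receptor that brings iron into dividing and red cells, had 70.5, 58.7 and 71.1 FPKM in PJ femurs and 307, 297 and 247 FPKM in OVX femurs, with no overlap (log2 fold change -2.07 ± 0.15, adjusted p = 0.00159). Slc11a2, the transporter that moves iron out of endosomes, averaged 12.0 ± 0.424 FPKM in PJ femurs and 22.6 ± 1.32 FPKM in OVX femurs and fell (-0.86, adjusted p = 0.00242). Fth1, the ferritin heavy chain, had the highest level of the list and did not pass, with 1394, 1213 and 1044 FPKM in PJ femurs and 1528, 1549.7 and 1217 FPKM in OVX femurs (adjusted p = 0.365). In the alternatives that moved a count by over 1.5 times, the lower count was 5 without OVX 1.

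**Figure D3:**
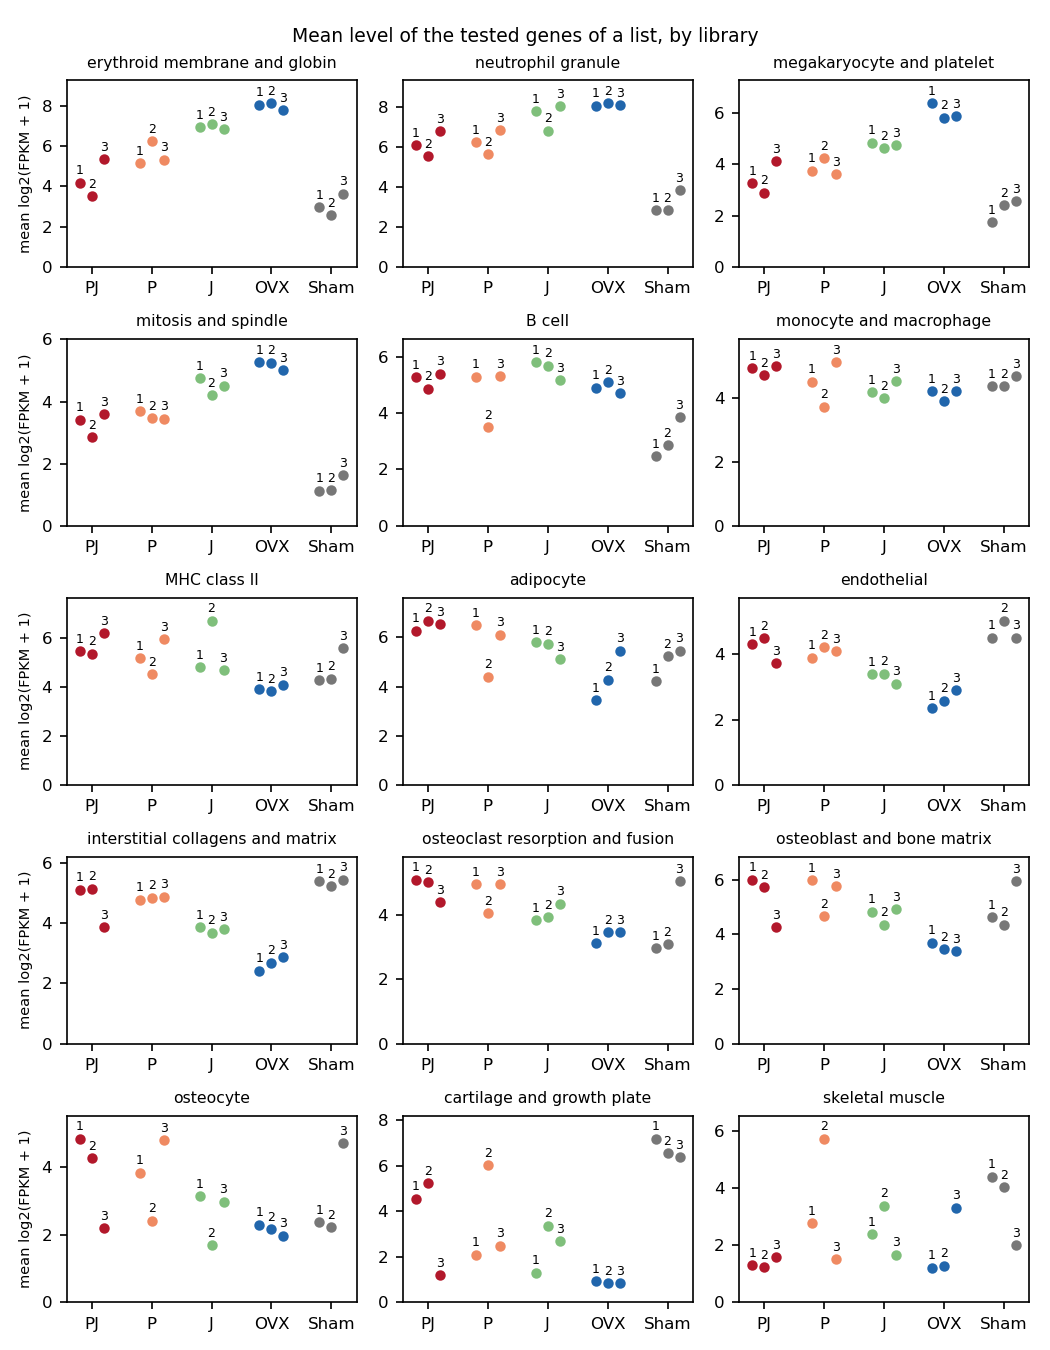
Mean log2(FPKM + 1) of the tested members of 15 gene lists in each of the 15 libraries, with the groups in the order PJ, P, J, OVX and Sham. In the red cell list the PJ points lie at 3.50 to 5.36 and the OVX points at 7.78 to 8.16, and in the cartilage list PJ 3 lies at 1.19, near OVX, while PJ 1 and PJ 2 lie at 4.55 and 5.22.

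Platelet and megakaryocyte genes fell as well. Of 19 tested, 18 fell and 0 rose, with a median of -2.75. Ppbp, the platelet basic protein, had 41.3, 25.9 and 63.9 FPKM in PJ femurs and 1018, 604 and 508 FPKM in OVX femurs (log2 fold change -4.02 ± 0.38, adjusted p = 0.00168). Pf4, platelet factor 4, had 110.1, 91.8 and 308 FPKM in PJ femurs and 1268, 837 and 881 FPKM in OVX femurs (log2 fold change -2.73 ± 0.46, adjusted p = 0.00512). The lowest OVX value was more than 7-fold the highest PJ value for Ppbp, and for Pf4 more than 2-fold. Gp6, the platelet receptor for collagen, had 2.55, 1.58 and 5.39 FPKM in PJ femurs and 49.2, 32.6 and 33.3 FPKM in OVX femurs (log2 fold change -3.32 ± 0.35, adjusted p = 0.00177). Thbs1, thrombospondin of platelet granules and other cells, had 30.3, 29.1 and 39.7 FPKM in PJ femurs and 259, 162 and 176 FPKM in OVX femurs (log2 fold change -2.54 ± 0.22, adjusted p = 0.00168). The promoter of Gp6 is shown because red cell and platelet genes are the known targets of GATA1, which binds the letters AGATAA. The sequence is from RefSeq, assembly GRCr8, 250 bases before to 50 after the gene start (chr1:78508258-78508557, plus strand), written 5′ to 3′ on the strand of the gene with the motif in capitals:
Gp6: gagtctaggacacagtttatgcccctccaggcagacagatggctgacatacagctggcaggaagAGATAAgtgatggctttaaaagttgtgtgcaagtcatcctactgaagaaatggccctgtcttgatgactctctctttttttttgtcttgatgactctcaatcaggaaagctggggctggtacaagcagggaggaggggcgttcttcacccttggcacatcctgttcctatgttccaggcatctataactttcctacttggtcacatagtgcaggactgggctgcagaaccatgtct
On either strand, AGATAA was in 4 of 13 platelet promoters in the table (30.8%), 3 of 17 red cell promoters (17.6%) and 11.3% of all 27457 promoters. These shares describe the letters in a short window and carry no test.

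Granulocyte genes fell too. Of 25 tested neutrophil granule genes, 22 fell and 3 did not pass, with a median of -2.27. Elane, neutrophil elastase, had 38.7, 38.5 and 45.8 FPKM in PJ femurs and 268, 290.4 and 209 FPKM in OVX femurs (log2 fold change -2.60 ± 0.16, adjusted p = 0.00159). Mpo, myeloperoxidase, whose values are given above, fell by 2.27 ± 0.15 on the log2 scale (adjusted p = 0.00159). Ms4a3, a marker of granulocyte and monocyte precursors, had 14.7, 14.2 and 18.3 FPKM in PJ femurs and 86.0, 86.5 and 88.5 FPKM in OVX femurs (log2 fold change -2.40 ± 0.13, adjusted p = 0.00159). In Elane, Mpo and Ms4a3 the 3 PJ libraries were below the 3 OVX libraries. S100a8, part of the calprotectin of mature neutrophils, was the most abundant, with 1418, 759.8 and 3985 FPKM in PJ femurs and 9564, 9576 and 11206 FPKM in OVX femurs, PJ 3 being more than 5-fold PJ 2 (log2 fold change -2.63 ± 0.58, adjusted p = 0.0121). Its call was lost with no filter on low values (adjusted p = 0.0847). For S100a8 the log2 fold change was -3.28 without PJ 3 (adjusted p = 0.000844). Mmp9, also made by osteoclasts, had 157, 183 and 100.2 FPKM in PJ femurs and 84.6, 125 and 119 FPKM in OVX femurs and did not pass (adjusted p = 0.263, chosen after its values were seen). Defensin genes have near-identical copies and are not named.

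Cell division genes fell almost without exception. All 40 of the 40 tested genes of mitosis and the spindle fell, with a median of -1.92, and 38 of 39 genes of DNA replication fell, with a median of -1.55. Mki67, the proliferation antigen Ki-67, had 23.8, 15.0 and 28.2 FPKM in PJ femurs and 131, 155 and 108 FPKM in OVX femurs (log2 fold change -2.53 ± 0.25, adjusted p = 0.00172). Ccnb1, the cyclin that drives entry into mitosis, had 11.1, 7.37 and 9.96 FPKM in PJ femurs and 44.1, 44.3 and 43.5 FPKM in OVX femurs, the 3 OVX values lying within 1 FPKM of each other (log2 fold change -2.12 ± 0.16, adjusted p = 0.00159). Hmmr, a spindle assembly factor, averaged 5.28 ± 1.12 FPKM in PJ femurs and 25.2 ± 3.93 FPKM in OVX femurs (log2 fold change -2.06, adjusted p = 0.00168). Pcna, the sliding clamp of DNA polymerase, had 88.8, 69.1 and 66.3 FPKM in PJ femurs and 233, 218 and 225 FPKM in OVX femurs (log2 fold change -1.59 ± 0.15, adjusted p = 0.00168). Tyms, thymidylate synthase, had 14.1, 11.2 and 9.74 FPKM in PJ femurs and 47.4, 46.6 and 37.4 FPKM in OVX femurs (log2 fold change -1.83 ± 0.17, adjusted p = 0.00168). The highest PJ library stayed under the lowest OVX library in Mki67, Ccnb1, Hmmr, Pcna and Tyms. The 1 replication gene counted as higher was an entry named Cdc45 (ENSRNOG00000050071), and a second entry of the same name (ENSRNOG00000070046) fell by 1.54 on the log2 scale (adjusted p = 0.00309). Cdc45 was singled out after its values were seen.

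Histone genes and the negative regulators of the cell cycle moved less evenly. Of 12 tested histone genes and histone mRNA factors, 9 fell and 0 rose. By setting, the lower count was 5 without OVX 1. Slbp, which binds the stem loop of replication histone mRNAs, had 34.7, 35.1 and 46.2 FPKM in PJ femurs and 164, 144 and 127 FPKM in OVX femurs (log2 fold change -1.89 ± 0.16, adjusted p = 0.00168). Of 19 cell cycle inhibitors and related genes, 3 rose, 6 fell and 10 did not pass (15.8% higher and 31.6% lower, against 29.6% and 14.4% of all genes tested). The list's median of 0.10 turned to -0.12 under median-ratio scaling. Elsewhere the higher count was 5 without PJ 3 or with array weights. Rb1 (-1.20) and Rbl1 (-1.39), the pocket proteins that restrain E2F, fell, with adjusted p = 0.00168 and 0.00201.

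Promoters are shown for the genes of cell division, because mitotic genes are known to carry CHR elements (TTTGAA) and CCAAT boxes near their start and replication genes E2F sites (TTTGGCGC or TTTCCCGC). They are from RefSeq, assembly GRCr8, 5′ to 3′ on the strand of the gene, with the motif in capitals in either orientation. Hmmr (chr10:25665166-25665465, minus strand) holds a CHR element, Ccnb1 (chr2:33655176-33655475, minus strand) holds 2 CCAAT boxes and Tyms (chr9:120776034-120776333, minus strand) holds an E2F site.
Hmmr: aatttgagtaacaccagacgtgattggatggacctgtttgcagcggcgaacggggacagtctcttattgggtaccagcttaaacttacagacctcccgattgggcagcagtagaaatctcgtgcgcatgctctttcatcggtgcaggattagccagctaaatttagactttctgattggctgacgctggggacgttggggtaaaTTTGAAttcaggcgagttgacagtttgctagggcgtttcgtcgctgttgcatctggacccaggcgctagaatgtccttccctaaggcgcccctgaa
Ccnb1: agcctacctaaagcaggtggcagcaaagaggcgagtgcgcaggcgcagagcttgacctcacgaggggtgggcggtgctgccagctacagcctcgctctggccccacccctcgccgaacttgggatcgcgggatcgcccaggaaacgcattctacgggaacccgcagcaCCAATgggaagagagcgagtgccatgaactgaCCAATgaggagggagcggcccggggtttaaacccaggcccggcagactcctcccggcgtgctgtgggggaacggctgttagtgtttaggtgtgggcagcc
Tyms: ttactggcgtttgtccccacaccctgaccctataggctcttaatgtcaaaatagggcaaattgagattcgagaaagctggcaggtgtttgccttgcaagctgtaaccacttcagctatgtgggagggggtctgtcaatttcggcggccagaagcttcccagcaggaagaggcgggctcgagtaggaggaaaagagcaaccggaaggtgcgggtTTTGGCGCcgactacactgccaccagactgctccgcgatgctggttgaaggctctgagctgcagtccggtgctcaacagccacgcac
Over both strands, TTTGAA was in 26 of the 34 mitosis promoters in the table (76.5%) and in 18.1% of all promoters, and CCAAT was in 24 of 34 (70.6%) and 37.7% of all. TTTGGCGC was in 8 of 33 replication promoters (24.2%) and 0.521% of all, and TTTCCCGC in 5 of 33 (15.2%) and 1.03% of all. The lists were chosen with earlier results of these data known, and the shares carry no test.

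Few lymphoid genes fell. Of 24 tested B cell genes, 4 rose, 0 fell and 20 did not pass (shares of 16.7% higher and 0% lower, against 29.6% and 14.4% of all genes tested). The median was 0.12 and turned to -0.09 under median-ratio scaling. Among the alternatives, the higher count was 2 with all 15 libraries. The 4 that rose were Ebf1, a factor of early B cells that stromal and fat cells also express, and Xbp1, Mzb1 and Jchain, genes of antibody-secreting cells. Jchain, the joining chain of secreted immunoglobulin, had 1418, 1912 and 2188 FPKM in PJ femurs and 669, 921 and 606 FPKM in OVX femurs, with no overlap (log2 fold change 1.33 ± 0.25, adjusted p = 0.00712). Its call was lost in the fit of all 15 libraries (adjusted p = 0.191), as was that of Mzb1 (adjusted p = 0.205), whose call was also lost without OVX 1, OVX 2 or OVX 3 (adjusted p 0.0581 to 0.0796). Xbp1, the transcription factor of secretory cells, averaged 109 ± 8.20 FPKM in PJ femurs and 56.4 ± 4.44 FPKM in OVX femurs (log2 fold change 0.93 ± 0.12, adjusted p = 0.00257).

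Of 19 T and NK cell genes, 10 rose and 2 fell (52.6% and 10.5%, against 29.6% and 14.4% of all genes tested). The median was 0.97. Under other settings the higher count was 2 without OVX 2, 3 without OVX 1 and 5 without OVX 3. It was 6 of 22 tested with no filter and 6 of 11 tested with a minimum of 5 FPKM. The lower count was 1 without PJ 1, PJ 2, OVX 1, OVX 2 or OVX 3. Gzmk, a granzyme of T cells, had 11.4, 18.6 and 14.4 FPKM in PJ femurs and 4.51, 3.47 and 4.13 FPKM in OVX femurs (log2 fold change 1.63 ± 0.20, adjusted p = 0.00218). Prf1, perforin, had 3.44, 4.72 and 8.07 FPKM in PJ femurs and 1.75, 1.39 and 1.33 FPKM in OVX femurs (log2 fold change 1.30 ± 0.28, adjusted p = 0.0107). Groups were apart, with PJ higher, in Gzmk and Prf1. The genes that fell were Nkg7 and Ncr1. Nkg7, a granule protein also found in myeloid precursors, had 21.2, 22.2 and 35.8 FPKM in PJ femurs and 90.3, 94.9 and 80.2 FPKM in OVX femurs (log2 fold change -1.74 ± 0.21, adjusted p = 0.00225). Ncr1, an NK cell receptor, had 3.48, 2.27 and 5.01 FPKM in PJ femurs and 5.79, 7.77 and 6.06 FPKM in OVX femurs (log2 fold change -0.75 ± 0.25, adjusted p = 0.0472). Ncr1 was named after its values were seen.

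Macrophage genes rose in part. Of 25 tested, 13 rose, 2 fell and 10 did not pass (52.0% higher and 8.00% lower, against 29.6% and 14.4% of all genes tested). The median was 0.92. Csf1r, the receptor for the growth factor of macrophages and osteoclasts, had 92.3, 80.6 and 54.0 FPKM in PJ femurs and 17.7, 18.4 and 16.7 FPKM in OVX femurs (log2 fold change 2.01 ± 0.21, adjusted p = 0.00177). Maf, a factor of mature macrophages, rose by 1.79 on the log2 scale (adjusted p = 0.00168). Mrc1, the mannose receptor of tissue macrophages, had 42.5, 39.1 and 36.2 FPKM in PJ femurs and 15.7, 11.3 and 13.7 FPKM in OVX femurs (log2 fold change 1.47 ± 0.15, adjusted p = 0.00177). Lyz2 and Itgam fell. Lyz2, the lysozyme of macrophages and neutrophils, had 1152, 714 and 1004 FPKM in PJ femurs and 2603, 2763 and 2703 FPKM in OVX femurs (log2 fold change -1.52 ± 0.22, adjusted p = 0.00338). Itgam, the integrin CD11b shared with neutrophils, had 17.3, 12.2 and 27.3 FPKM in PJ femurs and 40.7, 38.9 and 35.6 FPKM in OVX femurs (log2 fold change -1.06 ± 0.27, adjusted p = 0.0211). Itgam was named after its values were seen, and its call was lost without PJ 1, OVX 1 or OVX 2 (adjusted p 0.063 to 0.071).

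Genes of antigen presentation rose. Of 10 MHC class II genes, 7 rose and 0 fell (70.0% and 0%, against 29.6% and 14.4% of all genes tested). Another 3 did not pass, and the median was 1.84. Cd74, the invariant chain that guides class II molecules, had 567, 481 and 993 FPKM in PJ femurs and 129, 135 and 157 FPKM in OVX femurs (log2 fold change 2.20 ± 0.28, adjusted p = 0.0024). RT1-Ba, a rat class II alpha chain, averaged 235 ± 50.9 FPKM in PJ femurs and 36.6 ± 5.30 FPKM in OVX femurs. RT1-Da, another alpha chain, averaged 128 ± 23.9 FPKM in PJ femurs and 21.1 ± 3.73 FPKM in OVX femurs. Their log2 fold changes were 2.64 and 2.54 (adjusted p = 0.00163 and 0.00159), and reads of class II genes may be shared between similar copies. B cells, dendritic cells and macrophages all carry these genes.

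Among 32 chemokines and receptors, 16 rose, 6 fell and 10 did not pass. Across alternatives, the higher count was 7 with a minimum of 5 FPKM. Cxcl9, a T cell attractant, had 6.92, 10.3 and 7.73 FPKM in PJ femurs and 1.18, 1.24 and 1.10 FPKM in OVX femurs (log2 fold change 2.08 ± 0.17, adjusted p = 0.00168). Cx3cr1, a receptor of monocytes and macrophages, had 5.50, 5.45 and 5.35 FPKM in PJ femurs and 1.55, 1.82 and 1.89 FPKM in OVX femurs (log2 fold change 1.23 ± 0.14, adjusted p = 0.0019). Cxcl14, a chemokine of stromal and fat cells, was the most abundant, with 1422, 1316 and 898 FPKM in PJ femurs and 94.5, 345 and 435 FPKM in OVX femurs (log2 fold change 2.29 ± 0.57, adjusted p = 0.0186), and its call was lost without PJ 1 or PJ 2 (adjusted p 0.0559 to 0.0589). For Cxcl14 the log2 fold change was 1.62 without OVX 1 (adjusted p = 0.0156). No OVX library reached the PJ range of Cxcl9, Cx3cr1 and Cxcl14. Of the 6 that fell, all named for that after their values were seen, Ppbp and Pf4 are platelet genes, Cxcr2 and Ccr3 are receptors of neutrophils and eosinophils, Ackr1 is the Duffy antigen of red cells and venules, and Cxcr4 is the Cxcl12 receptor.

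Of 21 interferon response genes, 8 rose, 1 fell and 12 did not pass (38.1% higher and 4.76% lower, against 29.6% and 14.4% of all genes tested). In other fits the lower count was 3 without OVX 3 and 4 under median-ratio scaling or with array weights. Ifi27 had 179, 212 and 183 FPKM in PJ femurs and 81.3, 83.6 and 62.0 FPKM in OVX femurs (log2 fold change 1.33 ± 0.16, adjusted p = 0.00215). The 1 that fell, the antiviral enzyme Rsad2, had 8.40, 6.80 and 13.2 FPKM in PJ femurs and 117, 218 and 111 FPKM in OVX femurs, and its lowest OVX value was more than 8-fold its highest PJ value (log2 fold change -3.82 ± 0.33, adjusted p = 0.00168). Of 17 complement genes, 10 rose and 1 fell (58.8% higher and 5.88% lower, against 29.6% and 14.4% of all genes tested). C3, the central component, fell, with 17.6, 9.13 and 15.7 FPKM in PJ femurs and 38.9, 47.9 and 37.5 FPKM in OVX femurs (log2 fold change -1.53 ± 0.25, adjusted p = 0.00447). With other choices the lower count was 3 with array weights. C1r, a protease that starts the classical pathway, averaged 84.7 ± 26.6 FPKM in PJ femurs and 19.6 ± 5.14 FPKM in OVX femurs (log2 fold change 2.04 ± 0.30, adjusted p = 0.00341). Of 16 mast cell, basophil and eosinophil genes, 1 rose and 3 fell (6.25% higher and 18.8% lower, against 29.6% and 14.4% of all genes tested). In the alternatives that moved a count by over 1.5 times, the higher count was 4 without PJ 3 or with array weights. The lower count was 1 of 9 tested with a minimum of 5 FPKM and 8 without PJ 3 or with array weights. Ms4a2, the beta chain of the IgE receptor, had 4.92, 5.28 and 18.7 FPKM in PJ femurs and 46.7, 40.1 and 48.5 FPKM in OVX femurs (log2 fold change -2.35 ± 0.46, adjusted p = 0.008), while Kit, the receptor for stem cell factor that mast and stem cells share, had 35.0, 60.9 and 44.4 FPKM in PJ femurs and 8.84, 11.5 and 14.1 FPKM in OVX femurs (log2 fold change 1.92 ± 0.25, adjusted p = 0.00242).

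Osteoclast genes rose together. Of 30 tested osteoclast genes, 25 rose and 3 fell (83.3% and 10.0%, against 29.6% and 14.4% of all genes tested). Another 2 did not pass, and the median was 1.43. By setting, the lower count was 1 without PJ 2, OVX 1, OVX 2 or OVX 3 or with all 15 libraries. Ctsk, cathepsin K, the main collagenase of resorption, had 1789, 1929 and 727 FPKM in PJ femurs and 29.0, 110.0 and 64.7 FPKM in OVX femurs. The lowest PJ value, that of PJ 3, was more than 6-fold the highest OVX value (log2 fold change 4.50 ± 0.57, adjusted p = 0.00236). The log2 fold change was 4.95 without PJ 3. Acp5, the tartrate-resistant acid phosphatase used to stain osteoclasts, had 546, 504 and 259.9 FPKM in PJ femurs and 25.8, 52.1 and 38.9 FPKM in OVX femurs (log2 fold change 3.44 ± 0.36, adjusted p = 0.00177). All PJ values lay above all OVX values in Ctsk and Acp5. Atp6v0d2, a proton pump subunit needed for fusion of precursors, averaged 41.5 ± 20.0 FPKM in PJ femurs and 1.69 ± 1.22 FPKM in OVX femurs (log2 fold change 3.95 ± 0.51, adjusted p = 0.00245). Slc9b2, a sodium and proton exchanger of osteoclasts, had 24.3, 23.5 and 11.5 FPKM in PJ femurs and 0.162, 1.24 and 0.777 FPKM in OVX femurs (log2 fold change 3.57 ± 0.36, adjusted p = 0.00177). Tnfrsf11a, which encodes RANK, had 9.82, 9.39 and 6.08 FPKM in PJ femurs and 0.271, 0.498 and 0.618 FPKM in OVX femurs (log2 fold change 2.67 ± 0.22, adjusted p = 0.00164). In Atp6v0d2, Slc9b2 and Tnfrsf11a the 3 PJ libraries were above the 3 OVX libraries. With OVX means under 1 FPKM, Slc9b2 and Tnfrsf11a met the filter only through PJ, so their rise is not independent of it. The fusion genes Dcstamp and Ocstamp, chosen after their values were seen, rose by 2.50 and 1.90 on the log2 scale (adjusted p = 0.00537 and 0.00606).

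The 3 osteoclast genes that fell are also expressed by blood cells. Car2, carbonic anhydrase of osteoclasts and red cells, had 73.7, 57.1 and 138 FPKM in PJ femurs and 978, 985 and 747 FPKM in OVX femurs (log2 fold change -3.41 ± 0.33, adjusted p = 0.00169). Itgb3, an integrin chain of osteoclasts and platelets, had 108, 69.8 and 44.7 FPKM in PJ femurs and 242, 137 and 153 FPKM in OVX femurs (log2 fold change -1.29 ± 0.36, adjusted p = 0.0274). Src, a kinase of the ruffled border and of many other cells, had 23.8, 21.1 and 22.1 FPKM in PJ femurs and 40.6, 29.2 and 28.0 FPKM in OVX femurs (log2 fold change -0.51 ± 0.17, adjusted p = 0.0472). Itgb3 and Src were named after their values were seen. The call of Itgb3 was lost without PJ 2, OVX 1, OVX 2 or OVX 3 or in the fit of all 15 libraries (adjusted p 0.0503 to 0.245), and that of Src was lost without PJ 1, PJ 2, PJ 3, OVX 1, OVX 2 or OVX 3, with no filter on low values, after rescaling to TPM, in the fit of all 15 libraries or with the replicate block (adjusted p 0.054 to 0.261).

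**Figure D4:**
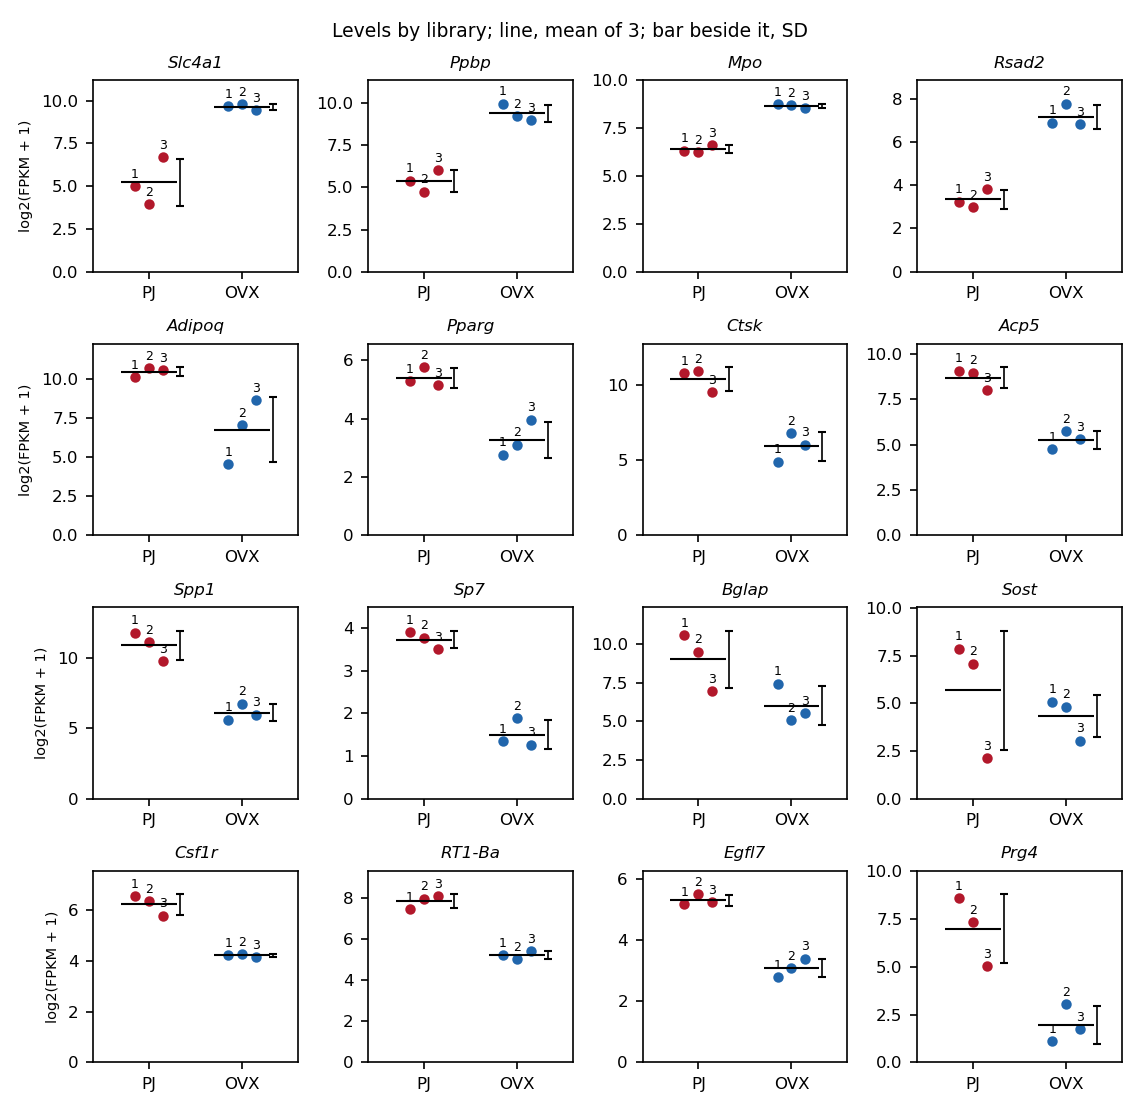
Level of 16 genes, as log2(FPKM + 1) on axes from 0, in each PJ library and each OVX library, with points numbered by library, a line at the mean of 3 and a bar of 1 SD. The PJ points of Slc4a1, Ppbp, Mpo and Rsad2 lie below all OVX points, those of Ctsk, Acp5, Sp7 and Csf1r above, and PJ 3 lies within the OVX range in Bglap and lowest of all in Sost.

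The promoter of Ctsk (chr2:185747298-185747597, plus strand) is shown because MITF and TFE3, factors of the osteoclast lineage, are known to act on this gene through E-boxes. It is from RefSeq, assembly GRCr8, 5′ to 3′ on the strand of the gene, with the letters TCATGTG or their reverse complement in capitals.
Ctsk: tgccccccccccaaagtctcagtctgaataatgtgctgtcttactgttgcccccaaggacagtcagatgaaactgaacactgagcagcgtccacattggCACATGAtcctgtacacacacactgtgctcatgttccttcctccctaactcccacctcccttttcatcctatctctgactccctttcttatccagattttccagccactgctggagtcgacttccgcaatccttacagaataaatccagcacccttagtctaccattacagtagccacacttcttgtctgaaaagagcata
TCATGTG was, on either strand, in 3 of 16 osteoclast promoters in the table (18.8%), those of Ctsk, Clcn7 and Siglec15, and in 3.46% of all promoters. The match describes letters and no binding was measured here.

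Of 18 tested genes of RANKL and osteoclast-active cytokines, 9 rose, 1 fell and 8 did not pass. Elsewhere the lower count was 3 with array weights. Tnfsf11, which encodes RANKL, had 21.4, 12.2 and 4.72 FPKM in PJ femurs and 1.55, 1.35 and 4.20 FPKM in OVX femurs, so that PJ 3 lay just above OVX 3 (log2 fold change 1.92 ± 0.54, adjusted p = 0.0289). Its call was lost without PJ 1, PJ 2, OVX 1 or OVX 2, with no filter on low values or with the replicate block (adjusted p 0.0542 to 0.0954). Tnfrsf11b, the decoy receptor osteoprotegerin, had 36.7, 45.1 and 0.803 FPKM in PJ femurs and 0.958, 0.581 and 0.351 FPKM in OVX femurs, and with PJ 3 inside the OVX range it did not pass (adjusted p = 0.0689). It passed without PJ 3, in the fit of all 15 libraries or with array weights (adjusted p 0.000254 to 0.0313). For Tnfrsf11b the log2 fold change was 2.50 without PJ 1, 2.36 without PJ 2 and 4.69 without PJ 3 (adjusted p 0.000254 to 0.185), against 3.18 with all 6 libraries. Il34, the second ligand of Csf1r, had 10.5, 8.65 and 10.7 FPKM in PJ femurs and 2.32, 2.03 and 1.69 FPKM in OVX femurs, with little spread in either group (log2 fold change 1.86 ± 0.15, adjusted p = 0.00167). Lif, a cytokine of the interleukin 6 family, averaged 2.61 ± 0.621 FPKM in PJ femurs and 0.301 ± 0.228 FPKM in OVX femurs, and Il6st, the shared receptor chain of that family, averaged 43.1 ± 17.2 FPKM in PJ femurs and 11.2 ± 1.63 FPKM in OVX femurs. Both rose (adjusted p = 0.00372 and 0.00666). With an OVX mean under 1 FPKM, Lif met the filter only through PJ. Il1a, interleukin 1 alpha, was the 1 that fell (-1.35, adjusted p = 0.00776, named after its values were seen).

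Of 34 genes of the proton pump and lysosome, 17 rose and 0 fell, with a median of 0.51. Among the alternatives, the higher count was 9 without OVX 1 or OVX 2, 10 without PJ 1 or under median-ratio scaling, 11 without PJ 2, 26 without PJ 3 and 27 with array weights. Ctsa, the protective protein cathepsin A, had 121, 103 and 116 FPKM in PJ femurs and 61.8, 53.3 and 60.5 FPKM in OVX femurs (log2 fold change 0.94 ± 0.13, adjusted p = 0.0026). Ctsb, the most abundant member, had 587, 562 and 449.6 FPKM in PJ femurs and 418, 583 and 509 FPKM in OVX femurs, overlapping between the groups (adjusted p = 0.743). TCACGTGA, the CLEAR element of lysosomal genes, was on either strand in 5 of the 27 promoters of this list in the table (18.5%) and in 0.867% of all promoters.

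Osteoblast genes were higher in PJ 1 and PJ 2 and less so in PJ 3. Of 28 tested genes of osteoblasts and bone matrix, 16 rose and 1 fell (57.1% and 3.57%, against 29.6% and 14.4% of all genes tested). Another 11 did not pass, and the median was 1.94. Under other settings the higher count was 9 without PJ 1, PJ 2, OVX 2 or OVX 3, 10 with no filter and 25 with array weights, and the lower count was 3 with array weights. Sp7, osterix, had 14.1, 12.7 and 10.4 FPKM in PJ femurs and 1.55, 2.71 and 1.40 FPKM in OVX femurs (log2 fold change 2.23 ± 0.21, adjusted p = 0.00168). Runx2, the master factor of the lineage, had 34.4, 24.8 and 15.0 FPKM in PJ femurs and 5.74, 6.46 and 7.74 FPKM in OVX femurs (log2 fold change 1.69 ± 0.29, adjusted p = 0.00558). Pth1r, the receptor for parathyroid hormone, had 87.7, 84.9 and 45.5 FPKM in PJ femurs and 6.93, 8.91 and 12.2 FPKM in OVX femurs (log2 fold change 2.80 ± 0.31, adjusted p = 0.00183). The lowest PJ library exceeded the highest OVX library in Sp7, Runx2 and Pth1r. Spp1, osteopontin, made by osteoblasts, osteoclasts and macrophages, had 3559, 2218 and 861 FPKM in PJ femurs and 48.1, 107 and 61.4 FPKM in OVX femurs (log2 fold change 4.78 ± 0.55, adjusted p = 0.00204).

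The main matrix proteins were less certain. Col1a1, with the values above, had a log2 fold change of 2.49 ± 0.82 and passed narrowly (adjusted p = 0.0472), although PJ 3 lay below OVX 1. Its call was lost without PJ 1, PJ 2, OVX 2 or OVX 3, with no filter on low values, under median-ratio scaling, without mitochondrial and globin genes or in the fit of all 15 libraries (adjusted p 0.0566 to 0.137). Col1a2, its partner chain, had 847, 606 and 119.8 FPKM in PJ femurs and 153, 56.1 and 45.7 FPKM in OVX femurs (log2 fold change 2.41 ± 0.80, adjusted p = 0.0482), and was lost without PJ 1, PJ 2, OVX 1, OVX 2 or OVX 3, with no filter on low values, with a minimum of 5 FPKM, under median-ratio scaling or without mitochondrial and globin genes (adjusted p 0.05005 to 0.136). For Col1a1 the log2 fold change was 3.26 without PJ 3 and 3.16 without OVX 1 (adjusted p 0.00936 to 0.0347). For Col1a2 the log2 fold change was 3.27 without PJ 3 (adjusted p = 0.00387). Bglap, osteocalcin, had 1512, 732 and 123 FPKM in PJ femurs and 173, 32.9 and 45.1 FPKM in OVX femurs and did not pass (adjusted p = 0.0511). PJ 3 lay inside the OVX range, and Bglap passed without PJ 3 or OVX 1, after rescaling to TPM, with the replicate block or with array weights (adjusted p 0.00139 to 0.0478). For Bglap the log2 fold change was 2.22 without PJ 1, 4.02 without PJ 3 and 3.71 without OVX 1 (adjusted p 0.00627 to 0.135), against 3.00 with all 6 libraries. Phospho1, a phosphatase that starts mineral deposition, was the 1 gene of the osteoblast list that fell. It had 6.81, 6.40 and 6.85 FPKM in PJ femurs and 15.6, 22.7 and 19.3 FPKM in OVX femurs (log2 fold change -1.38 ± 0.16, adjusted p = 0.00204). Which cells of the femur its RNA came from was not tested.

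Osteocyte genes set PJ 3 apart from PJ 1 and PJ 2. The mean log2 level of the list was 4.86, 4.27 and 2.19 in PJ femurs and 2.30, 2.17 and 1.98 in OVX femurs. Of 14 tested, 3 rose (Irx5, Ptprz1 and Kcnk2) and 0 fell (21.4% higher and 0% lower, against 29.6% and 14.4% of all genes tested). Across alternatives, the higher count was 0 of 8 tested with a minimum of 5 FPKM, 5 with the replicate block, 11 without PJ 3 and 12 with array weights. Dmp1, a matrix protein of osteocytes that regulates phosphate, had 374, 281 and 24.5 FPKM in PJ femurs and 31.5, 20.1 and 13.5 FPKM in OVX femurs (adjusted p = 0.067), with PJ 3 below the highest OVX value. Sost, the osteocyte inhibitor of Wnt signalling, had 233, 135 and 3.36 FPKM in PJ femurs and 33.2, 27.5 and 7.32 FPKM in OVX femurs (adjusted p = 0.488), and PJ 3 was the lowest of all 6 libraries. Neither passed with all 6 libraries. Dmp1 passed without PJ 3, with the replicate block or with array weights (adjusted p 0.000499 to 0.032), and Sost passed without PJ 3 or with array weights (adjusted p 0.00902 to 0.0106). For Dmp1 the log2 fold change was 1.98 without PJ 1 and 3.92 without PJ 3 (adjusted p 0.000652 to 0.178), against 2.69 with all 6 libraries. For Sost the log2 fold change was 0.28 without PJ 1, 0.67 without PJ 2, 3.15 without PJ 3 and 0.73 without OVX 3 (adjusted p 0.00902 to 0.899), against 1.36 with all 6 libraries. Ptprz1, a receptor phosphatase, had 11.5, 9.40 and 3.76 FPKM in PJ femurs and 0.614, 0.993 and 1.17 FPKM in OVX femurs (log2 fold change 2.16 ± 0.37, adjusted p = 0.00548). Its OVX mean was under 1 FPKM, so it met the filter only through PJ.

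Genes of several signalling pathways rose widely. Among 46 BMP and TGF-beta pathway genes, 36 rose and 0 fell, with a median of 1.71. The antagonist Nog, noggin, had 4.10, 5.09 and 4.07 FPKM in PJ femurs and 0.257, 0.660 and 0.284 FPKM in OVX femurs (log2 fold change 1.96 ± 0.19, adjusted p = 0.00168). The feedback inhibitor Smad7 had 26.9, 27.7 and 19.4 FPKM in PJ femurs and 4.39, 6.09 and 5.92 FPKM in OVX femurs (log2 fold change 1.98 ± 0.19, adjusted p = 0.00168). Bmp1, the protease that trims procollagen, averaged 44.7 ± 11.9 FPKM in PJ femurs and 12.4 ± 1.59 FPKM in OVX femurs (adjusted p = 0.00223). Groups were apart, with PJ higher, in Nog, Smad7 and Bmp1. With all OVX values under 1 FPKM, Nog met the filter only through PJ. Id3, a direct BMP target, was the most abundant, with 304, 227 and 306 FPKM in PJ femurs and 24.6, 49.5 and 113 FPKM in OVX femurs, and its OVX values spread widely, with OVX 3 the highest (log2 fold change 2.39 ± 0.51, adjusted p = 0.0107).

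Of 40 Wnt pathway genes, 24 rose, 1 fell and 15 did not pass, with a median of 1.31. In other fits the higher count was 13 without OVX 1, 14 without PJ 1 or OVX 2 and 15 without PJ 2. Axin2, the usual readout of beta-catenin activity, had 4.01, 5.08 and 5.72 FPKM in PJ femurs and 1.49, 1.73 and 1.39 FPKM in OVX femurs (log2 fold change 1.22 ± 0.17, adjusted p = 0.00293). The nuclear partners Tcf7l1 and Tcf7l2 rose by 2.01 and 1.82 on the log2 scale (adjusted p = 0.00245 and 0.00255). The secreted inhibitor Sfrp1 had 51.1, 57.7 and 30.7 FPKM in PJ femurs and 9.17, 11.1 and 13.0 FPKM in OVX femurs (log2 fold change 1.94 ± 0.26, adjusted p = 0.00259) and lost its call in the fit of all 15 libraries (adjusted p = 0.0764). Ctnnb1, beta-catenin, had 211, 209 and 101 FPKM in PJ femurs and 72.7, 70.6 and 75.4 FPKM in OVX femurs (log2 fold change 1.16 ± 0.29, adjusted p = 0.0196), and was lost without PJ 1, PJ 2, OVX 1, OVX 2 or OVX 3 (adjusted p 0.0511 to 0.0664). Rspo1, a ligand that strengthens Wnt signals, was the 1 that fell (-0.77, adjusted p = 0.0414, named after its values were seen), and 0 fell without PJ 1, PJ 2, OVX 1, OVX 2 or OVX 3.

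In the IGF system 10 of 18 rose and 0 fell (55.6% and 0%, against 29.6% and 14.4% of all genes tested). With other choices the higher count was 5 without PJ 2 or OVX 2 and 6 without PJ 1. Irs1, the first adaptor of the IGF1 receptor, had 6.41, 7.39 and 9.16 FPKM in PJ femurs and 0.667, 1.43 and 1.98 FPKM in OVX femurs (log2 fold change 1.90 ± 0.25, adjusted p = 0.00258). Igfbp4, an IGF-binding protein of bone, had 252, 258 and 242 FPKM in PJ femurs and 43.2, 59.5 and 102 FPKM in OVX femurs (log2 fold change 1.95 ± 0.30, adjusted p = 0.00385). No OVX library reached the PJ range of Irs1 and Igfbp4. In the Notch pathway 14 of 21 rose and 0 fell (66.7% and 0%, against 29.6% and 14.4% of all genes tested). In the alternatives that moved a count by over 1.5 times, the higher count was 9 of 15 tested with a minimum of 5 FPKM. Hey1, a Notch target, had 5.33, 4.12 and 3.81 FPKM in PJ femurs and 0.946, 0.822 and 0.639 FPKM in OVX femurs (log2 fold change 1.58 ± 0.18, adjusted p = 0.00192). The ligand Jag1 had 12.6, 15.3 and 12.4 FPKM in PJ femurs and 1.84, 1.95 and 4.01 FPKM in OVX femurs (log2 fold change 2.05 ± 0.25, adjusted p = 0.00216). All PJ values lay above all OVX values in Hey1 and Jag1. With all OVX values under 1 FPKM, Hey1 met the filter only through PJ. Of 12 Hedgehog and PTHrP genes, 9 rose and 0 fell, and Smo, the signal transducer, had 16.6, 19.3 and 9.36 FPKM in PJ femurs and 1.57, 1.91 and 2.50 FPKM in OVX femurs (log2 fold change 2.38 ± 0.28, adjusted p = 0.00207).

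Estrogen receptors and responsive genes are of interest because ovariectomy removes the hormone and Psoralea extracts are studied as phytoestrogens. Of 15 tested, 8 rose, 0 fell and 7 did not pass (53.3% higher and 0% lower, against 29.6% and 14.4% of all genes tested). A further 10 of the list were under the filter. The receptor genes Esr1 and Esr2 were under the filter of 1 FPKM and were not tested. Esr1 had 2.08, 0.958 and 0.560 FPKM in PJ femurs and 0.133, 0.303 and 0.638 FPKM in OVX femurs, and Esr2 was at or below 0.0502 FPKM in all 6. Ccnd1, cyclin D1, had 22.9, 17.7 and 12.1 FPKM in PJ femurs and 2.61, 3.11 and 3.79 FPKM in OVX femurs (log2 fold change 2.12 ± 0.24, adjusted p = 0.00203). Gper1, a membrane receptor for estrogen, had 2.05, 2.35 and 2.42 FPKM in PJ femurs and 0.298, 0.588 and 0.725 FPKM in OVX femurs (log2 fold change 1.10 ± 0.19, adjusted p = 0.00509). Its OVX values were all under 1 FPKM, so Gper1 met the filter only through PJ.

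Of 46 interstitial collagens and matrix genes, 40 rose and 0 fell, with a median of 2.15. Mfap5, a microfibril protein, had 26.9, 26.9 and 22.4 FPKM in PJ femurs and 2.62, 3.04 and 3.17 FPKM in OVX femurs (log2 fold change 2.74 ± 0.14, adjusted p = 0.00159). Efemp2, fibulin 4 of elastic fibres, had 31.5, 25.5 and 23.4 FPKM in PJ femurs and 4.74, 4.72 and 6.18 FPKM in OVX femurs (log2 fold change 2.16 ± 0.16, adjusted p = 0.00163). Col6a2, a collagen of the pericellular matrix, had 52.6, 68.5 and 42.9 FPKM in PJ femurs and 7.76, 11.5 and 13.1 FPKM in OVX femurs (log2 fold change 2.24 ± 0.24, adjusted p = 0.00183). In Mfap5, Efemp2 and Col6a2 the 3 PJ libraries were above the 3 OVX libraries. Of 9 small leucine-rich proteoglycans, 8 rose and 0 fell. By setting, the higher count was 2 without PJ 1, PJ 2 or OVX 1, 3 without OVX 2, 4 without OVX 3 and 5 with no filter. Bgn, biglycan, had 257, 274 and 114 FPKM in PJ femurs and 27.6, 32.9 and 35.0 FPKM in OVX femurs (log2 fold change 2.62 ± 0.34, adjusted p = 0.0025). Dcn, decorin, had 672, 631 and 47.4 FPKM in PJ femurs and 20.5, 26.8 and 35.4 FPKM in OVX femurs, with PJ 3 less than 2-fold above OVX 3 (log2 fold change 3.29 ± 0.99, adjusted p = 0.0359), and was lost without PJ 1, PJ 2, OVX 1, OVX 2 or OVX 3, with no filter on low values or with the replicate block (adjusted p 0.0534 to 0.105). For Dcn the log2 fold change was 2.65 without PJ 1, 2.69 without PJ 2 and 4.54 without PJ 3 (adjusted p 0.000254 to 0.102). Of 24 metalloproteinases and inhibitors, 14 rose and 2 fell (58.3% and 8.33%, against 29.6% and 14.4% of all genes tested). Those that fell were the neutrophil enzymes Mmp8 and Mmp25, named for that after their values were seen. Elsewhere the lower count was 0 without OVX 2. Mmp13, the collagenase of osteoblasts and growth plate cartilage, had 902, 1081 and 461 FPKM in PJ femurs and 71.1, 217 and 129 FPKM in OVX femurs (log2 fold change 2.59 ± 0.48, adjusted p = 0.00668). The inhibitor Timp1 had 103, 81.8 and 30.2 FPKM in PJ femurs and 6.31, 7.57 and 9.48 FPKM in OVX femurs (log2 fold change 2.89 ± 0.44, adjusted p = 0.00379).

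Cartilage and joint genes were high in PJ 1 and PJ 2 and lower in PJ 3 and the OVX libraries. The mean log2 level of the cartilage list was 4.55, 5.22 and 1.19 in PJ femurs and 0.95, 0.84 and 0.85 in OVX femurs. Of 20 tested cartilage genes, 7 rose, 1 fell and 12 did not pass (35.0% higher and 5.00% lower, against 29.6% and 14.4% of all genes tested). Among the alternatives, the higher count was 2 without OVX 2, 3 without PJ 2 or OVX 3 and 4 without PJ 1 or OVX 1. It was 4 of 15 tested with a minimum of 5 FPKM and 19 without PJ 3 or with array weights. Clec3a, a cartilage lectin and the most abundant member, had 394, 712 and 0 FPKM in PJ femurs and 0.0789, 0.375 and 0 FPKM in OVX femurs, so that it was at 0 in 1 library of each group, and did not pass (adjusted p = 0.0859). It passed without PJ 3 or with array weights (adjusted p 0.000254 to 0.000429). For Clec3a the log2 fold change was 4.55 without PJ 1, 4.12 without PJ 2 and 8.86 without PJ 3 (adjusted p 0.000254 to 0.222), against 5.84 with all 6 libraries. Chad, chondroadherin, had 222, 328 and 2.56 FPKM in PJ femurs and 0.685, 1.02 and 0.575 FPKM in OVX femurs (log2 fold change 5.19 ± 1.63, adjusted p = 0.041), and was lost without PJ 1, PJ 2, OVX 1, OVX 2 or OVX 3 or with no filter on low values (adjusted p 0.0727 to 0.117). Cytl1, a cytokine-like protein of cartilage, had 368, 374 and 9.78 FPKM in PJ femurs and 1.76, 3.70 and 4.45 FPKM in OVX femurs (log2 fold change 4.79 ± 1.35, adjusted p = 0.0288), and was lost without PJ 1, PJ 2, OVX 1, OVX 2 or OVX 3 or with no filter on low values (adjusted p 0.0538 to 0.0901). For Chad the log2 fold change was 4.29 without PJ 1, 4.01 without PJ 2 and 7.27 without PJ 3 (adjusted p 0.000254 to 0.117). For Cytl1 the log2 fold change was 3.94 without PJ 1, 3.93 without PJ 2 and 6.49 without PJ 3 (adjusted p 0.000254 to 0.0846). Sox9, the master factor of cartilage, had 1.65, 3.96 and 1.13 FPKM in PJ femurs and 0.110, 0.139 and 0.0482 FPKM in OVX femurs (log2 fold change 1.47 ± 0.33, adjusted p = 0.0132). With all OVX values under 1 FPKM, Sox9 met the filter only through PJ. Sox6, its partner, which erythroid cells also use, was the 1 that fell, with 2.34, 3.49 and 1.60 FPKM in PJ femurs and 9.10, 12.5 and 9.50 FPKM in OVX femurs (log2 fold change -1.73 ± 0.24, adjusted p = 0.00278).

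In the joint list 8 of 13 rose and 0 fell (61.5% and 0%, against 29.6% and 14.4% of all genes tested). Under other settings the higher count was 3 without PJ 1, PJ 2, OVX 2 or OVX 3 and 4 without OVX 1 or with no filter. It was 5 under median-ratio scaling, 5 of 10 tested with a minimum of 5 FPKM and 13 with array weights. Prg4, lubricin of the joint surface, had 382, 161 and 31.7 FPKM in PJ femurs and 1.15, 7.36 and 2.36 FPKM in OVX femurs (log2 fold change 5.01 ± 0.93, adjusted p = 0.007). Cilp, a protein of deep cartilage, had 137, 104 and 10.4 FPKM in PJ femurs and 0.143, 1.83 and 1.24 FPKM in OVX femurs (log2 fold change 4.82 ± 0.94, adjusted p = 0.00828). Ecrg4, which headed the higher genes, had 291, 274 and 1.73 FPKM in PJ femurs and 0.768, 0.779 and 0.177 FPKM in OVX femurs (log2 fold change 5.28 ± 1.75, adjusted p = 0.0478), and was lost without PJ 1, PJ 2, OVX 1, OVX 2 or OVX 3, with no filter on low values or under median-ratio scaling (adjusted p 0.0519 to 0.133). For Prg4 the log2 fold change was 4.21 without PJ 1 and 5.99 without PJ 3 (adjusted p 0.00106 to 0.0188). For Cilp the log2 fold change was 4.16 without PJ 1 and 5.96 without PJ 3 (adjusted p 0.000344 to 0.0267). For Ecrg4 the log2 fold change was 4.15 without PJ 1, 4.19 without PJ 2 and 7.52 without PJ 3 (adjusted p 0.000254 to 0.133). The labels do not say how far joint tissue was trimmed from the femurs, and the part of cartilage content in these results was not tested.

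Fat cell genes rose, while the OVX libraries differed among themselves. Of 36 tested adipocyte genes, 29 rose, 0 fell and 7 did not pass, with a median of 2.14. The mean log2 level of the list was 6.27, 6.68 and 6.55 in PJ femurs and 3.45, 4.28 and 5.46 in OVX femurs. OVX 3 was the highest and OVX 1 the lowest of the OVX libraries, and PJ 3 lay with the other PJ libraries here. Across alternatives, the higher count was 16 without OVX 2 and 18 without PJ 2. Adipoq, adiponectin, had 1104, 1619.8 and 1492 FPKM in PJ femurs and 22.1, 130.2 and 398 FPKM in OVX femurs (log2 fold change 3.70 ± 0.95, adjusted p = 0.0208), and was lost without PJ 1, PJ 2 or OVX 2 (adjusted p 0.0502 to 0.0604). For Adipoq the log2 fold change was 2.60 without OVX 1 and 4.66 without OVX 3 (adjusted p 0.00769 to 0.0195). Pparg, the master factor of fat cells, had 37.6, 53.3 and 34.2 FPKM in PJ femurs and 5.75, 7.61 and 14.6 FPKM in OVX femurs (log2 fold change 2.12 ± 0.33, adjusted p = 0.00408). Plin4, a lipid droplet coat protein, had 50.8, 69.4 and 43.5 FPKM in PJ femurs and 1.78, 5.66 and 10.1 FPKM in OVX femurs (log2 fold change 3.21 ± 0.49, adjusted p = 0.00375). The lowest PJ library exceeded the highest OVX library in Pparg and Plin4. Lep, leptin, had 13.1, 22.0 and 19.4 FPKM in PJ femurs and 0.433, 1.85 and 4.84 FPKM in OVX femurs (log2 fold change 2.71 ± 0.50, adjusted p = 0.00676). Nnat, neuronatin, rose with little spread, with 100.1, 94.4 and 91.3 FPKM in PJ femurs and 11.5, 8.76 and 15.1 FPKM in OVX femurs (log2 fold change 2.94 ± 0.19, adjusted p = 0.00159). Fabp4, the fatty acid carrier of fat cells, had 944, 1741 and 1456 FPKM in PJ femurs and 62.5, 192 and 613 FPKM in OVX femurs (log2 fold change 2.77 ± 0.77, adjusted p = 0.0279), and was lost without PJ 1, PJ 2, PJ 3 or OVX 2 or with no filter on low values (adjusted p 0.0504 to 0.0806). It was named after its values were seen. For Fabp4 the log2 fold change was 1.96 without OVX 1 and 3.60 without OVX 3 (adjusted p 0.00693 to 0.0488).

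Genes that make cholesterol and fatty acids moved less evenly. Of 33 tested, 8 rose, 3 fell and 22 did not pass (24.2% higher and 9.09% lower, against 29.6% and 14.4% of all genes tested). The median of 0.21 turned to -0.00048 under median-ratio scaling. In other fits the higher count was 4 without OVX 2, 5 without PJ 2 or with no filter and 13 after rescaling to TPM, and the lower count was 1 without PJ 2, OVX 1 or OVX 3 and 5 without PJ 3. Scd had 835, 2459 and 579 FPKM in PJ femurs and 3.17, 128 and 140.4 FPKM in OVX femurs, the OVX 1 value standing far below the other OVX values (log2 fold change 4.65 ± 1.39, adjusted p = 0.0352), and was lost without PJ 1 or PJ 2 or with no filter on low values (adjusted p 0.064 to 0.102). For Scd the log2 fold change was 4.04 without PJ 2, 2.98 without OVX 1, 5.45 without OVX 2 and 5.52 without OVX 3 (adjusted p 0.023 to 0.102). Srebf1, the factor that turns on fatty acid synthesis, had 69.2, 80.4 and 85.4 FPKM in PJ femurs and 8.83, 11.4 and 34.6 FPKM in OVX femurs (log2 fold change 2.28 ± 0.46, adjusted p = 0.00931). Fads2, a desaturase of polyunsaturated fatty acids, fell, with 5.72, 4.75 and 3.56 FPKM in PJ femurs and 17.2, 21.7 and 14.8 FPKM in OVX femurs (log2 fold change -1.74 ± 0.20, adjusted p = 0.00211).

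Genes of the stem cell niche, the stromal cells that hold blood stem cells, mostly rose. Of 16 tested, 11 rose and 1 fell (68.8% and 6.25%, against 29.6% and 14.4% of all genes tested). Another 4 did not pass, and the median was 1.49. Cxcl12, the chemokine that retains stem cells in marrow, had 681, 759.8 and 721 FPKM in PJ femurs and 182, 274 and 368 FPKM in OVX femurs (log2 fold change 1.44 ± 0.26, adjusted p = 0.00642), and was lost in the fit of all 15 libraries (adjusted p = 0.0575). Kitlg, stem cell factor, had 46.3, 61.4 and 47.6 FPKM in PJ femurs and 12.9, 17.1 and 20.4 FPKM in OVX femurs (log2 fold change 1.58 ± 0.20, adjusted p = 0.00236). The 1 that fell was Cxcr4, the receptor for Cxcl12 on blood cells, with 93.9, 62.4 and 104 FPKM in PJ femurs and 138, 137 and 159 FPKM in OVX femurs (log2 fold change -0.76 ± 0.21, adjusted p = 0.026, named after its values were seen). Its call was lost without PJ 1, OVX 1, OVX 2 or OVX 3 (adjusted p 0.0508 to 0.0809).

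Vessel genes rose. Of 32 tested endothelial genes, 28 rose, 1 fell and 3 did not pass, with a median of 1.75. Pecam1, the junction protein CD31, had 65.4, 66.1 and 42.8 FPKM in PJ femurs and 17.3, 16.2 and 16.8 FPKM in OVX femurs (log2 fold change 1.71 ± 0.19, adjusted p = 0.00188). Egfl7, a secreted endothelial factor, had 35.2, 44.4 and 36.8 FPKM in PJ femurs and 5.97, 7.49 and 9.57 FPKM in OVX femurs (log2 fold change 2.21 ± 0.19, adjusted p = 0.00168). Sox17, a factor of arterial cells, had 11.7, 12.8 and 11.5 FPKM in PJ femurs and 1.34, 2.02 and 3.09 FPKM in OVX femurs (log2 fold change 2.08 ± 0.22, adjusted p = 0.00177). Groups were apart, with PJ higher, in Pecam1, Egfl7 and Sox17. Vwf, the von Willebrand factor of endothelium and platelets, was the 1 that fell, with 10.8, 5.84 and 8.10 FPKM in PJ femurs and 37.3, 21.4 and 25.5 FPKM in OVX femurs (log2 fold change -1.65 ± 0.27, adjusted p = 0.00476). It was named after its values were seen. Of 15 pericyte and smooth muscle genes, 12 rose and 0 fell. With other choices the higher count was 6 without PJ 1 or OVX 2 and 7 without OVX 1. Pdgfrb, the receptor that recruits pericytes, had 74.6, 60.9 and 62.5 FPKM in PJ femurs and 7.38, 10.7 and 17.8 FPKM in OVX femurs (log2 fold change 2.44 ± 0.29, adjusted p = 0.00215).

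Most muscle genes missed the threshold. Of 14 tested, 0 rose, 1 fell and 13 did not pass (0% higher and 7.14% lower, against 29.6% and 14.4% of all genes tested). The mean log2 level of the list was 1.30, 1.25 and 1.58 in PJ femurs and 1.22, 1.29 and 3.32 in OVX femurs, with OVX 3 the highest, and the list's median of -0.64 turned to 0.10 without OVX 3, when 2 genes passed as higher and 0 as lower. In peripheral nerve 5 of 9 rose and 2 fell (55.6% higher and 22.2% lower, against 29.6% and 14.4% of all genes tested). In the alternatives that moved a count by over 1.5 times, the higher count was 2 without PJ 2 or OVX 2 or with a minimum of 5 FPKM and 3 without PJ 1 or OVX 1, with no filter or with the replicate block. The myelin gene Mbp fell, with 8.44, 8.52 and 7.51 FPKM in PJ femurs and 12.8, 13.8 and 13.3 FPKM in OVX femurs (log2 fold change -0.64 ± 0.12, adjusted p = 0.00642), and lost its call in the fit of all 15 libraries (adjusted p = 0.135). Pmp22, a myelin protein also made by stroma, rose, with 100.2, 98.0 and 52.8 FPKM in PJ femurs and 6.54, 17.7 and 23.2 FPKM in OVX femurs (log2 fold change 2.43 ± 0.47, adjusted p = 0.00801).

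Genes that respond to plant compounds and oxidants gave a mixed picture. Of 20 targets of the aryl hydrocarbon receptor and NRF2, 6 rose, 6 fell and 8 did not pass (30.0% higher and 30.0% lower, against 29.6% and 14.4% of all genes tested). By setting, the higher count was 3 without PJ 1, PJ 2, OVX 1 or OVX 2 or under median-ratio scaling and 10 with array weights, and the lower count was 3 without PJ 1 or OVX 1. Gclm and Gclc, the subunits of the enzyme that limits glutathione synthesis, both fell. Gclm had 17.7, 18.8 and 21.2 FPKM in PJ femurs and 90.0, 105 and 75.9 FPKM in OVX femurs (log2 fold change -2.16 ± 0.15, adjusted p = 0.00159) and Gclc had 21.0, 15.3 and 20.8 FPKM in PJ femurs and 70.4, 84.5 and 63.5 FPKM in OVX femurs (log2 fold change -1.89 ± 0.18, adjusted p = 0.00168). No OVX library reached down to the PJ range of Gclm and Gclc. Nqo1, the classical NRF2 target, averaged 8.13 ± 0.727 FPKM in PJ femurs and 6.06 ± 0.976 FPKM in OVX femurs and did not pass (adjusted p = 0.0855), though it passed after rescaling to TPM (adjusted p = 0.0473). Cyp1b1, a target of the aryl hydrocarbon receptor that stromal cells express, had 20.5, 14.0 and 32.3 FPKM in PJ femurs and 3.60, 4.29 and 7.44 FPKM in OVX femurs (log2 fold change 1.90 ± 0.35, adjusted p = 0.00666). The receptor gene Ahr rose by 1.41 on the log2 scale (adjusted p = 0.00191). Cyp1a1, the most inducible target, was under the filter, with 0.0727, 0 and 4.97 FPKM in PJ femurs and 0.262, 0 and 0 FPKM in OVX femurs.

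Of 21 antioxidant enzymes, 5 rose, 7 fell and 9 did not pass (23.8% higher and 33.3% lower, against 29.6% and 14.4% of all genes tested). Elsewhere the higher count was 3 without OVX 1, and the lower count was 12 under median-ratio scaling. Prdx2, a peroxiredoxin abundant in red cells, had 97.0, 72.7 and 166 FPKM in PJ femurs and 805, 755 and 624 FPKM in OVX femurs (log2 fold change -2.77 ± 0.31, adjusted p = 0.00188). Gpx1, the main glutathione peroxidase of red cells, had 341, 288 and 474 FPKM in PJ femurs and 1418, 1374 and 1097 FPKM in OVX femurs (log2 fold change -1.84 ± 0.23, adjusted p = 0.00231). All PJ values lay below all OVX values in Prdx2 and Gpx1. Gpx8, a peroxidase of the endoplasmic reticulum, rose, with 55.0, 58.3 and 33.8 FPKM in PJ femurs and 7.42, 9.20 and 11.8 FPKM in OVX femurs (log2 fold change 2.24 ± 0.25, adjusted p = 0.00198). Gpx3 and Sod3, secreted enzymes chosen after their values were seen, rose by 3.17 and 3.17 on the log2 scale (adjusted p = 0.0138 and 0.00904). For Gpx3 the log2 fold change was 4.06 without PJ 3 (adjusted p = 0.000307). For Sod3 the log2 fold change was 3.84 without OVX 3 (adjusted p = 0.00477). The call of Gpx3 was lost without OVX 1 (adjusted p = 0.051).

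Energy genes moved both ways. Of 34 glycolysis and hypoxia genes, 12 rose and 11 fell (35.3% higher and 32.4% lower, against 29.6% and 14.4% of all genes tested). The median of 0.11 turned to -0.06 under median-ratio scaling and -0.07 with a minimum of 5 FPKM. Among the alternatives, the higher count was 3 without OVX 2, 4 without PJ 1, PJ 2 or OVX 1 and 7 with the replicate block, and the lower count was 6 without OVX 1 and 7 without PJ 2 or OVX 3 or after rescaling to TPM. Ldhb had 82.2, 98.7 and 89.7 FPKM in PJ femurs and 17.6, 25.3 and 30.0 FPKM in OVX femurs (log2 fold change 1.88 ± 0.21, adjusted p = 0.00186). Hk1, the hexokinase of red cells and many tissues, had 16.7, 13.5 and 14.0 FPKM in PJ femurs and 40.7, 40.1 and 38.6 FPKM in OVX femurs (log2 fold change -1.38 ± 0.12, adjusted p = 0.00168). Of 42 nuclear genes of oxidative phosphorylation, 1 rose, 12 fell and 29 did not pass (2.38% higher and 28.6% lower, against 29.6% and 14.4% of all genes tested). Under other settings the higher count was 4 with array weights, and the lower count was 4 without OVX 1 or OVX 3, 6 without PJ 1, PJ 2 or OVX 2 or after rescaling to TPM, 7 with the replicate block and 21 under median-ratio scaling. Cox5a, a subunit of cytochrome oxidase, had 25.4, 21.7 and 26.5 FPKM in PJ femurs and 52.9, 47.6 and 50.4 FPKM in OVX femurs (log2 fold change -1.01 ± 0.12, adjusted p = 0.00224). Of 13 mitochondrially encoded genes 0 passed in limma, 1 was higher with the replicate block, and the median of 0.27 turned to -0.08 with array weights. Mt-co1, the most abundant, had 9954, 13328 and 14809 FPKM in PJ femurs and 14069, 13271 and 14595 FPKM in OVX femurs, overlapping between the groups (adjusted p = 0.686).

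Of 67 cytoplasmic ribosomal protein genes, 0 rose, 18 fell and 49 did not pass (0% higher and 26.9% lower, against 29.6% and 14.4% of all genes tested). Across alternatives, the lower count was 0 without OVX 1, 1 without PJ 1, PJ 2 or OVX 3, 6 with no filter or after rescaling to TPM, 7 without OVX 2, 10 with the replicate block, 32 without mitochondrial and globin genes or with array weights and 46 under median-ratio scaling. It thus depended on scaling and on single libraries. Of 28 genes of the unfolded protein response and secretory pathway, 10 rose and 0 fell (35.7% higher and 0% lower, against 29.6% and 14.4% of all genes tested). In other fits the higher count was 6 without PJ 2, OVX 1 or OVX 2, 21 without PJ 3 and 23 with array weights. Sel1l, which clears misfolded proteins from the endoplasmic reticulum, had 34.3, 33.9 and 31.5 FPKM in PJ femurs and 15.9, 17.6 and 17.5 FPKM in OVX femurs (log2 fold change 0.93 ± 0.11, adjusted p = 0.00215). Creb3l1, a factor of collagen secretion in osteoblasts, had 9.27, 8.33 and 5.88 FPKM in PJ femurs and 1.70, 2.17 and 2.60 FPKM in OVX femurs (log2 fold change 1.47 ± 0.20, adjusted p = 0.00293). Of 27 apoptosis genes, 8 rose and 1 fell (29.6% higher and 3.70% lower, against 29.6% and 14.4% of all genes tested). The median of 0.06 turned to -0.14 under median-ratio scaling. With other choices the higher count was 5 with a minimum of 5 FPKM, and the lower count was 3 without PJ 3 or without mitochondrial and globin genes, 4 under median-ratio scaling and 5 with array weights. Bcl2l1, which protects maturing red cells and platelets, fell, with 10.3, 8.54 and 11.2 FPKM in PJ femurs and 26.4, 32.4 and 21.4 FPKM in OVX femurs (log2 fold change -1.32 ± 0.18, adjusted p = 0.00292), and its relative Bcl2 rose, with 6.94, 6.28 and 4.42 FPKM in PJ femurs and 1.83, 1.73 and 1.99 FPKM in OVX femurs (log2 fold change 1.25 ± 0.18, adjusted p = 0.00338).

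Immediate early and stress genes, which can respond to tissue handling, were checked in the same way. Of 22 tested, 10 rose and 0 fell (45.5% higher and 0% lower, against 29.6% and 14.4% of all genes tested). In the alternatives that moved a count by over 1.5 times, the higher count was 4 without OVX 1, 5 without OVX 2 or with no filter, 6 without PJ 2 and 16 without OVX 3. Egr1 had 93.3, 81.8 and 146 FPKM in PJ femurs and 7.70, 29.9 and 105 FPKM in OVX femurs, with OVX 3 above PJ 1 and PJ 2 (adjusted p = 0.13). For Egr1 the log2 fold change was 0.87 without OVX 1 and 2.68 without OVX 3 (adjusted p 0.0186 to 0.282), against 1.78 with all 6 libraries. Gadd45b, a stress-induced gene, had 20.3, 16.1 and 20.1 FPKM in PJ femurs and 9.16, 9.41 and 9.57 FPKM in OVX femurs (log2 fold change 0.93 ± 0.13, adjusted p = 0.00315). Klf2, a factor of endothelium and quiescent T cells, had 13.5, 12.7 and 15.0 FPKM in PJ femurs and 6.22, 7.06 and 5.89 FPKM in OVX femurs (log2 fold change 1.00 ± 0.13, adjusted p = 0.00252).

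The combination was also set against each extract alone, in a limma fit of all 15 libraries and 14416 genes. These comparisons share the PJ libraries with the one above, and the total dose differs between the groups, so they do not separate composition from dose. Against P, given the Psoralea extract alone, 0 genes (0.00%) passed in limma. At an unadjusted p below 0.05 there were 296 (2.05%), a smaller share than this threshold would give on average with no differences. Limma with array weights called 1 higher and 3 lower. P 2 stood apart in its group. It correlated at 0.8514 with P 1 and 0.8382 with P 3, while P 1 and P 3 correlated at 0.9622. Mitochondrial genes held 35.9% of the FPKM of P 2, 17.6% of that of P 1 and 11.2% of that of P 3. Without P 2, 0 genes passed too. The lack of calls does not show that PJ and P are alike. The 95% interval of the difference had a median width of 0.93 on the log2 scale, and differences of moderate size lie inside many of these intervals. For Slc4a1 the means were 49.1 ± 46.5 FPKM in PJ, 129 ± 63.4 FPKM in P, 367 ± 80.4 FPKM in J and 799.9 ± 105 FPKM in OVX femurs (SD, n = 3 each). The log2 difference of PJ from P was -1.70 (95% interval -2.94 to -0.46). For Ctsk they were 1482 ± 658 FPKM in PJ, 1052 ± 680.4 FPKM in P, 449.9 ± 238 FPKM in J and 67.9 ± 40.6 FPKM in OVX femurs, and the difference was 0.67 (95% interval -1.64 to 2.97). For Nnat they were 95.3 ± 4.44 FPKM in PJ, 40.0 ± 29.8 FPKM in P, 45.4 ± 48.0 FPKM in J and 11.8 ± 3.19 FPKM in OVX femurs, with a difference of 1.54 (95% interval 0.07 to 3.01). Of the genes with the smallest p, Hp, the plasma haptoglobin that binds free hemoglobin, had 31.3, 20.9 and 31.0 FPKM in PJ femurs and 5.65, 8.37 and 9.30 FPKM in P femurs (log2 difference 1.71 ± 0.39, adjusted p = 1). Minpp1, an inositol phosphatase, had 16.9, 13.5 and 19.7 FPKM in PJ femurs and 21.5, 35.9 and 29.1 FPKM in P femurs (log2 difference -0.74 ± 0.19, adjusted p = 1). Ermap, a red cell adhesion protein, had 5.31, 2.27 and 15.2 FPKM in PJ femurs and 17.0, 28.7 and 17.5 FPKM in P femurs (log2 difference -1.63 ± 0.45, adjusted p = 1). In OVX femurs Hp had 29.7, 18.8 and 37.5 FPKM, so its PJ values lay within the OVX range and its P values below both. The 3 genes Hp, Minpp1 and Ermap did not pass. They were chosen for their small p, so the lack of overlap between their PJ and P values adds no support.

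Against J, given the Juglans extract alone, 2056 genes (14.3%) passed, 1208 (8.38%) higher and 848 (5.88%) lower in PJ. The split depended on scaling: median-ratio scaling gave 719 higher and 1372 lower, leaving out mitochondrial and globin genes 770 and 1252, and TPM 1725 and 563. It also depended on single libraries. The counts of higher and lower genes were 226 and 387 without PJ 1, 127 and 270 without PJ 2, 2295 and 1524 without PJ 3, 444 and 399 without J 1, 593 and 836 without J 2, and 471 and 454 without J 3. The red cell genes named here were lower in PJ than in J. Slc4a1 differed by -3.29 ± 0.57, adjusted p = 0.00589, Alas2 by -3.18 ± 0.60, adjusted p = 0.00781, and Bpgm, the enzyme of red cells that makes 2,3-bisphosphoglycerate, had 31.8, 27.2 and 54.0 FPKM in PJ femurs and 179, 215 and 179.9 FPKM in J femurs (log2 difference -2.37 ± 0.26, adjusted p = 0.00399).

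So were the named cell division genes. Mki67 differed by -1.69 ± 0.25, adjusted p = 0.00453, Ccnb1 by -1.22 ± 0.23, adjusted p = 0.00739, and Cenpk, a kinetochore protein, had 2.90, 2.15 and 3.44 FPKM in PJ femurs and 9.23, 7.64 and 8.76 FPKM in J femurs (log2 difference -1.33 ± 0.17, adjusted p = 0.00453). Of genes higher in PJ, Plcg1, a phospholipase of growth factor signalling, had 58.2, 62.7 and 64.6 FPKM in PJ femurs and 29.1, 24.9 and 31.3 FPKM in J femurs (log2 difference 1.10 ± 0.15, adjusted p = 0.00453). Tnks1bp1, which binds tankyrase, had 15.9, 15.9 and 15.2 FPKM in PJ femurs and 8.02, 7.46 and 7.97 FPKM in J femurs (log2 difference 0.92 ± 0.13, adjusted p = 0.00453). The PJ and J values of Bpgm, Cenpk, Plcg1 and Tnks1bp1 did not overlap, which adds no support since these genes were chosen for their small p. The osteoclast and bone genes Ctsk, Acp5, Spp1 and Sp7 did not pass against J: Ctsk differed by 1.74 ± 1.06, adjusted p = 0.275, Acp5 by 1.48 ± 1.03, adjusted p = 0.34, Spp1 by 1.62 ± 1.02, adjusted p = 0.291 and Sp7 by 1.08 ± 0.61, adjusted p = 0.24. Adipoq also missed the threshold (1.51 ± 1.07, adjusted p = 0.345), while Smo, of the Hedgehog pathway, passed (1.34 ± 0.23, adjusted p = 0.00573). Whether the differences of PJ from P and from J differ from each other was not tested.

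**Figure D5:**
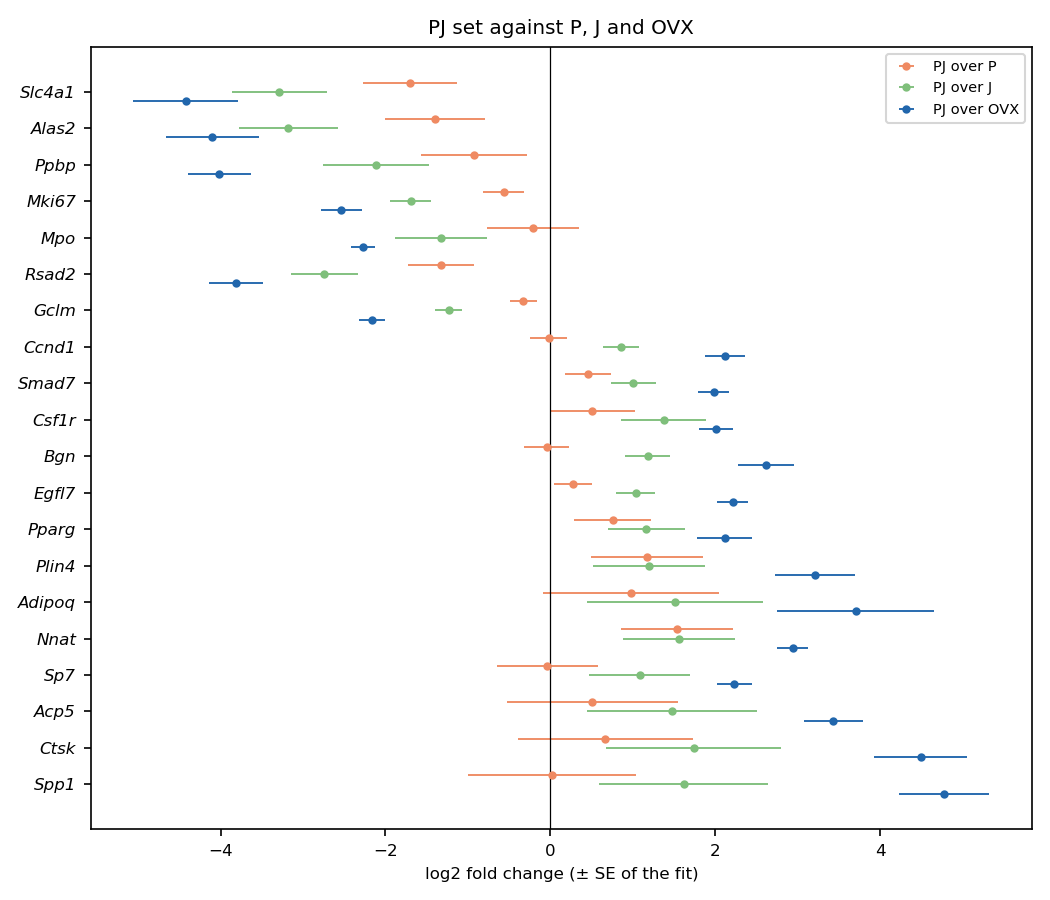
Log2 difference of PJ from P, from J and from OVX for 20 named genes, with bars of 1 SE of each fit. The points for PJ over P lie nearest to 0, those for PJ over OVX farthest, and Slc4a1 lies at -1.70 from P, -3.29 from J and -4.42 from OVX.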

How the data were processed

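The 3 PJ and 3 OVX libraries hold polyadenylated femur RNA, taken with TRIzol and prepared with a TruSeq kit per the labels' protocols. The submitters' processing notes name the build mRatBN7.2, featureCounts 2.0.6, fastp 0.23.4 and STAR 2.7.11a. They do not say whether counting used strand, so antisense and overlapping genes are uncertain. The deposited column named for counts holds FPKM made by the authors, since the values scale with gene length and are no whole numbers. Depth was inferred from the steps of these values, and a floor of 3 reads covers counting error only.

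Genes with a mean of at least 1 FPKM over the 6 libraries were analysed as log2(FPKM + 1), a scale that understates the change of low genes. Genes averaging under 1 FPKM in OVX femurs met this filter only through their PJ values. Among them were Sox9, Gper1, Lif, Nog, Tnfrsf11a, Slc9b2, Hey1, Ptprz1, Chad and Ecrg4. Their rise, and their part in the counts of higher list members, is thus not independent of the filter. R 4.3.3 and limma 3.58.1 gave the fit, with moderated variances that may trend with mean level, 4 residual degrees of freedom, two-sided tests and Benjamini-Hochberg adjustment over all genes at 0.05. An exact permutation test of 3 against 3 could not go below 0.1 and was not used. PJ was set against P and J in a fit of all 15 libraries with 10 residual degrees of freedom. A value after ± is a standard error (SE) after a log2 fold change and a standard deviation (SD) after a mean. The fit was also run on simulated data. There genes were independent and few were changed, unlike here, so that run gives no assurance on these calls.

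The comparison, the 50 gene lists and the named genes were chosen with earlier results of these data known, so lists are described by counts and medians and not tested. Counts of every list are to be read against the 29.6% higher and 14.4% lower of all genes tested. Named genes were the 10 highest and 10 lowest changes that passed without overlap, up to 4 genes of smallest p in each list, its most abundant member and fixed bone, fat and estrogen genes, and in PJ against P or J the 5 of smallest p in each direction, though not all are named and some are not reported here. A list's count under another setting is given where it moved by over 1.5 times and by more than 1 gene. A minimum of 5 FPKM tests fewer members of many lists, so a smaller count there need not mean lost calls. Other genes are marked as chosen after their values were seen. Promoter sequences are from RefSeq, assembly GRCr8, matched by symbol. Other settings tried were no filter, a pseudocount of 0.1, a minimum of 5 FPKM, TPM, median-ratio scaling, leaving out mitochondrial and globin genes, all 15 libraries or only the groups compared, array weights, a replicate block and leaving out each library.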

Additional observations from a re-analysis of the deposited data

How the results depend on the processing

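The numbers of higher and lower genes in PJ against OVX were 2594 to 4979 and 1346 to 2709 when 1 library was left out, and a minimum of 5 FPKM, which tests fewer genes, gave 2766 higher. Against P, array weights gave 1 higher and 3 lower. Against J the higher count was 719 under median-ratio scaling, 770 without mitochondrial and globin genes, 4476 with array weights, 320 with only the 2 groups and 127 to 2295 when 1 library was left out, and the lower count was 563 after rescaling to TPM, 1372 under median-ratio scaling, 2929 with array weights, 295 with only the 2 groups and 270 to 1524 when 1 library was left out. The labels do not say whether replicate numbers pair the libraries. Deviations of same-numbered libraries correlated at -0.034, 0.143 and -0.0181 and those of other pairs at -0.207 to 0.161, too few values to settle it. The replicate block gave 3449 higher and 1704 lower genes against OVX, 1097 and 875 against J and 0 against P. Of 273 named genes, 6 that did not pass changed sign: Prg2 (0.51 with array weights, -0.97 to 0.17 when 1 library was left out), Ctsb (-0.14 under median-ratio scaling, -0.052 without mitochondrial and globin genes, -0.042 to 0.20 when 1 library was left out), Btg1 (-0.027) and Calr (-0.056) under median-ratio scaling, Mt-co1 (-0.28 to 0.0084 when 1 library was left out) and Mcl1 (0.056 after rescaling to TPM, -0.13 to 0.0092 when 1 library was left out). Of the named genes 31, 29, 22, 30, 29 and 4 lost their call without OVX 1, OVX 2, OVX 3, PJ 1, PJ 2 and PJ 3, 2, 0, 3, 0, 0 and 13 gained one, and the fold moved by over 1.5 times in 12, 2, 13, 14, 17 and 32. The cause of these moves was not tested beyond the loss of 1 of 3 libraries. Genes within a few reads of the floor, such as Esr2, carry no information on change at this depth.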
